A study of Mus musculus with 12 samples.

Results

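The livers of mice given the plant lectin concanavalin A (Con A) and then phosphate-buffered saline (PBS) were compared with the livers of control mice, gene by gene. The groups were taken from the labels, and 8 of the 12 mice of the series entered the comparison, 4 in each group. All 11289 genes of the expression table were tested. All animals were C57BL/6J mice that the labels put at 8 to 10 weeks of age, kept free of specific pathogens, and no engineered allele is named. The 4 Con A + PBS mice received 1 dose of 15 mg/kg Con A into the tail vein and 200 µL of PBS into a vein 30 min later, and their livers were collected 24 h after Con A. The 4 control mice carry the label "Control" alone, and the labels do not say whether they were injected. The remaining 4 mice of the series received Con A followed by hUC-MSCs, human mesenchymal stromal cells from umbilical cord, and entered the tests only through the shared estimate of variance. They also counted toward the minimum score, given below, that genes needed to be in the table. The comparison addresses which genes differ in the liver during the injury that Con A causes.

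Con A binds sugar chains on the cell surface and activates T cells, natural killer T cells and macrophages, and after intravenous injection the cytokines that these cells release damage hepatocytes. Hepatocytes make most plasma proteins, clear drugs and bile acids and handle amino acids, sugar and fat. During inflammation they are known to secrete acute phase proteins such as serum amyloid A, largely under the control of interleukin 6, interleukin 1 and the transcription factors STAT3, NF-kB and C/EBP. Interferon from activated T cells and natural killer cells works through STAT factors and interferon regulatory factors on many liver cells.

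The values are whole-number scores that the authors had already brought to a common distribution, so the total per mouse lay between 17649654 and 17656982. The scale of the score is not given in the sources used here, so scores were tested between mice within a gene, and sums or ranks of scores over genes are given as descriptions. In each mouse 10 genes shared the largest score of 341028, and the scores below it also came in sets of 10 with nearly the same value, such as 147377 to 148316 and 72606 to 72892 in control mouse 1. Alb and Trf stood at the largest score in all 8 mice, so no change in either gene could be seen. The study's methods describe male animals. Xist, the RNA of the inactive X chromosome of female cells, scored 17660, 10956, 13948 and 15102 in the control mice and 17660, 16342, 29687 and 23620 in the Con A + PBS mice. Kdm5d of the Y chromosome scored 244, 217, 241 and 202 in the control mice and 288, 240, 254 and 341 in the Con A + PBS mice. Genes known to be higher in female mouse liver were at high scores in the controls, among them Cyp2b13 at 3198, 1907, 2552 and 3362 and Cyp3a44 at 2398, 2341, 5393 and 2002, whereas Cyp4a12a, a gene of male mouse liver, stood at 7, 10, 18 and 20. The labels give no sex, the genes named here were picked after their values were seen, and the part of sex in the results below was not tested.

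Livers after Con A differed from control livers in 38.8% of the measured genes. Of the 11289 genes, 2206 were called higher (19.5%) and 2173 were called lower (19.2%) in the Con A + PBS mice than in the controls, by limma, with p adjusted after Benjamini and Hochberg to under 0.05 and more than 1.5-fold on the log2(score + 1) scale. The added 1 makes the change of genes with low scores appear smaller, and the size of their change depends on it: with 10 added in its place, 196 called genes had a fold smaller by more than 1.5 times, and A2m, the largest increase, was at 7.93 rather than 10.26. Without regard to the test, all 4 Con A + PBS mice lay above all 4 controls for 27.1% of genes and below them for 23.4%. The median log2 fold change was 1.00 among the genes called higher, -1.14 among the genes called lower and 0.05 over all genes. The increases reached further than the decreases: 60 genes rose by more than 32-fold and 27 fell by more than 32-fold, although at 2-fold the order was the other way, with 1107 higher and 1284 lower. For 3373 genes (29.9%) the 95% interval of the change lay within 1.5-fold either way. A further 3537 genes were neither called nor held within that range, and for these the data do not say whether they changed. The table holds only genes with a score of 64 or more in at least 2 of the 12 mice. Of all genes, 723 (6.40%) reached this minimum in fewer than 2 controls and so needed mice given Con A to enter, and 454 of these were called higher. Another 355 (3.14%) reached it in controls but in fewer than 2 mice given Con A, and 280 of these were called lower. For such genes the direction was partly set by entry into the table, so for each gene family described below in which they made up more than 15% of the members their number is given, with the calls among the members that reached the minimum on both sides, in at least 2 controls and at least 2 mice given Con A. The mice given Con A include those given cells and outnumber the controls. Entry was thus easier for genes low in controls than for genes low after Con A. The part of entry in the further reach of the increases was not tested. Gene families below are described by how many of their measured members were called, to be read beside the 19.5% and 19.2% of all genes.

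**Figure D1:**
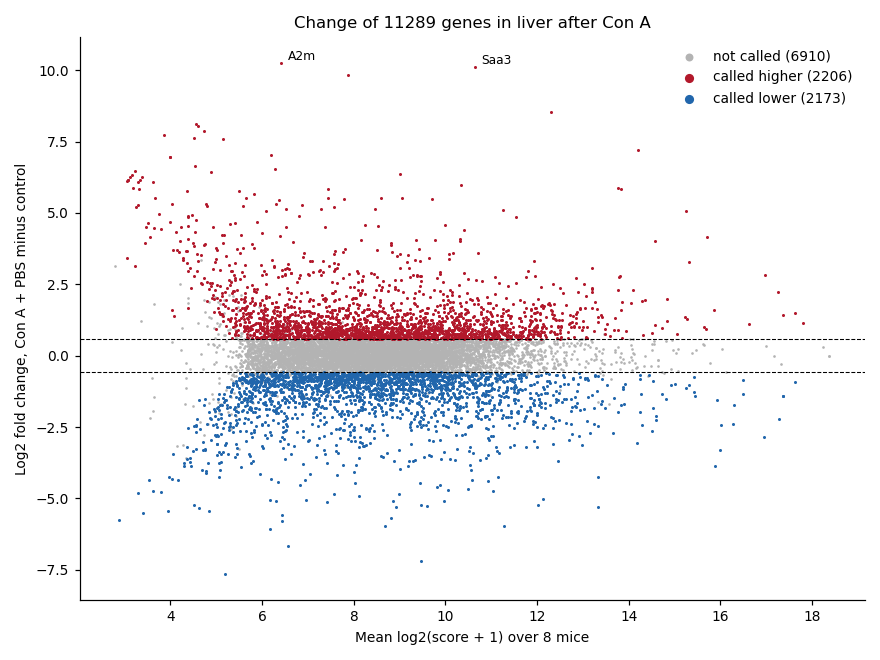
Log2 fold change between the 4 Con A + PBS and the 4 control mice (vertical axis) against the mean log2(score + 1) over the 8 mice (horizontal axis), 1 point per gene for 11289 genes. Red points are the 2206 genes called higher, blue points the 2173 genes called lower and grey points the others, and the dashed lines mark a 1.5-fold change. Changes of both directions occur along the whole range of scores, and among the points that reach farthest up are A2m and Saa3.

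The 15 largest increases with no overlap between the groups included an inhibitor of proteases, serum amyloids, a chemokine and genes of activated macrophages and neutrophils. A2m encodes alpha-2-macroglobulin, a plasma inhibitor of proteases, and lies at chr6:121636173-121679237 (mm10). Its scores were 3, 0, 0 and 8 in the control mice and 3542, 4932, 2222 and 2080 in the Con A + PBS mice (log2 fold change 10.26, SE 0.74, adjusted p = 7.4e-07). A2m was under a score of 20 in every control and over 500 in every Con A + PBS mouse. Ch25h, whose enzyme makes 25-hydroxycholesterol, was at 0, 0, 4 and 0 in the controls and at 415, 370, 372 and 408 after Con A (log2 fold change 8.03, SE 0.52, adjusted p = 3.3e-07). Nos2, the inducible nitric oxide synthase, moved from 0, 0, 6 and 0 to 441, 211, 198 and 550 (log2 fold change 7.61, SE 0.67, adjusted p = 2.8e-06). Ptgs2, the inducible cyclooxygenase of prostaglandin synthesis, was listed at 0 in all 4 controls and scored 221, 191, 164 and 282 after Con A, so that no fold is given. Ubd, a ubiquitin-like protein induced by interferon gamma and TNF, went from 6, 7, 5 and 4 to 1538, 880, 1505 and 234 (log2 fold change 7.02, SE 0.57, adjusted p = 1.7e-06), and its Con A + PBS mouse 4 was the lowest. Sprr1a, a small proline-rich protein of stressed epithelia, showed the converse pattern with 2, 0, 2 and 0 in the controls and 526, 201, 164 and 1581 after Con A, where mouse 4 was the highest (log2 fold change 7.88, SE 0.80, adjusted p = 8.6e-06). A2m, Ch25h, Nos2, Ptgs2, Ubd and Sprr1a were under the table's minimum in every control and entered through mice given Con A, so their direction was partly set by entry. Also among the 15 were Saa3, Saa2, Cxcl9, Ngp and Gpnmb, described below, a further small proline-rich gene at 6.66 for Sprr2a2, and the uncharacterised genes at 8.11 for 3930402G23Rik and 7.59 for Gm10309. A2m was at 10.88 without control mouse 4, Nos2 at 8.31 without control mouse 3, Sprr1a at 7.23 without Con A + PBS mouse 4, Sprr2a2 at 7.87 without control mouse 1 and Ubd at 7.63 without Con A + PBS mouse 4.

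The promoter of Sprr1a is shown as that of the gene with the largest increase among those that held the AP-1 letters, here with 2 matches. The 250 bases before its start are at chr3:92485882-92486131 on the minus strand (GRCm38.p6, RefSeq), with the AP-1 letters TGANTCA in capitals.
Sprr1a: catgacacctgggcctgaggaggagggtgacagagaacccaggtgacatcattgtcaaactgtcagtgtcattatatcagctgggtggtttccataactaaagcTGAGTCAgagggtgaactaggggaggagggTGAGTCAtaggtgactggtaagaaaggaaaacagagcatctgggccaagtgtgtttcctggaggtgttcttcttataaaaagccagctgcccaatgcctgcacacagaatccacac

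The 15 largest decreases held enzymes and transporters of hepatocytes and genes of the endothelium. Cux2, a transcription factor of female mouse liver, scored 382, 428, 681 and 654 in the controls and 2, 0, 4 and 2 after Con A (log2 fold change -7.65, SE 0.57, adjusted p = 9e-07). Inmt, an N-methyltransferase, went from 10336, 9389, 5730 and 9848 to 40, 26, 36 and 287 (log2 fold change -7.20, SE 0.69, adjusted p = 5.3e-06). Slc22a7, the organic anion transporter OAT2, went from 814, 1100, 1220 and 779 to 16, 10, 2 and 13 (log2 fold change -6.67, SE 0.81, adjusted p = 3.2e-05) and was the only gene over 500 in every control and under 20 in every Con A + PBS mouse. Car3, the carbonic anhydrase of liver and muscle, stood at 20890, 20890, 16342 and 20890 in the controls and at 316, 161, 165 and 1190 after Con A (log2 fold change -5.95, SE 0.83, adjusted p = 8.5e-05). Hao2, a peroxisomal hydroxyacid oxidase, moved from 1032, 550, 651 and 456 to 12, 6, 6 and 27 (log2 fold change -5.80, SE 0.50, adjusted p = 2.5e-06). Rgn, regucalcin, moved from 72783, 58210, 58210 and 72783 to 1064, 2421, 812 and 3547 (log2 fold change -5.30, SE 0.54, adjusted p = 9.2e-06). The groups were separate for all of these genes. Cdh18, a cadherin, scored 39, 84, 30 and 82 in the controls and was listed at 0 in the 4 Con A + PBS mice. Cd300lg, a receptor of endothelium, had a log2 fold change of -5.32. The other members of the 15 were Clec4g, Cyp8b1, Cyp7a1 and Aox3, described below, and the little-known genes at -5.51 for BC048644, -5.44 for 1700055N04Rik and -5.42 for Gm4477. Cdh18 was no longer called when control mouse 1, 2 or 4 was left out, at adjusted p values of 0.0712, 0.0832 and 0.0833. Car3 was at -6.59 without Con A + PBS mouse 4, Cd300lg at -4.67 without Con A + PBS mouse 4 and Inmt at -7.96 without Con A + PBS mouse 4.

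**Figure D2:**
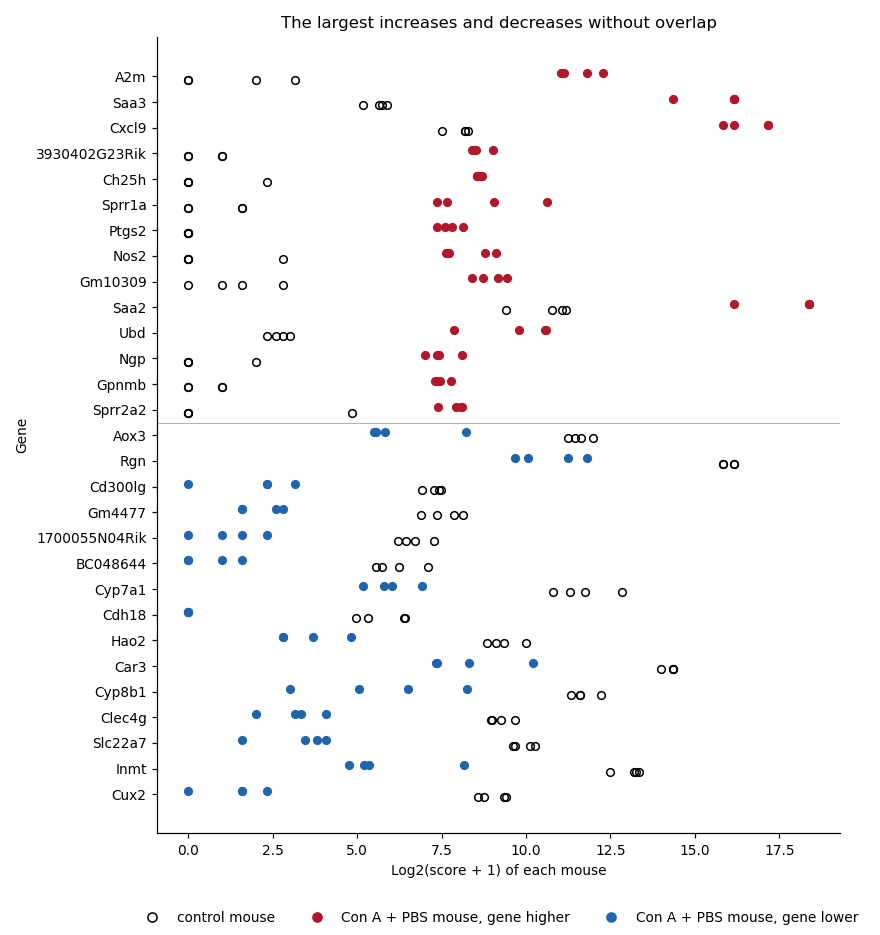
Log2(score + 1) of each mouse (horizontal axis) for the genes named in the text among the 15 largest increases and the 15 largest decreases without overlap (vertical axis). Open circles are the 4 control mice and filled circles the 4 Con A + PBS mice, 1 circle per mouse, with equal scores lying on each other. The 2 groups are separated in every gene shown by the rule that chose them, and among the Con A + PBS mice mouse 4 is the lowest in Ubd and the highest in Sprr1a and Inmt.

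Acute phase proteins, which hepatocytes release into plasma during inflammation, rose. Of the 30 listed genes, 26 were called higher and none lower (median log2 fold change 1.85). Saa3, a serum amyloid made in liver and macrophages, scored 49, 52, 58 and 35 in the controls and 72724, 72724, 72724 and 20871 after Con A (log2 fold change 10.09, SE 0.38, adjusted p = 4.9e-09). Saa2, a serum amyloid of hepatocytes, went from 1746, 2138, 2304 and 678 to 341028, 341028, 341028 and 72682 (log2 fold change 7.22, SE 0.49, adjusted p = 4.7e-07), 3 of the 4 Con A + PBS mice being at the largest score. Saa1 and Saa2 are close copies whose reads may have been split between them, and Saa1 had a log2 fold change of 5.83. Lcn2, lipocalin 2, which withholds iron carriers from bacteria, went from 1244, 1714, 4920 and 1020 to 72682, 72682, 72682 and 341028 (log2 fold change 5.89, SE 0.53, adjusted p = 3.5e-06). Cd14, a receptor for bacterial lipopolysaccharide that is also shed into plasma, went from 58, 60, 55 and 49 to 5380, 4032, 4184 and 5242 (log2 fold change 6.37, SE 0.24, adjusted p = 4.9e-09). Il1rn, the interleukin 1 receptor antagonist, went from 64, 44, 69 and 50 to 3150, 1784, 2565 and 3348 (log2 fold change 5.54, SE 0.22, adjusted p = 6.2e-09). The groups did not overlap in any of these genes. Other increases were 4.85 for Orm2, 4.16 for Orm1, 3.06 for Steap4, 2.81 for Hp, 2.11 for Apcs, 1.59 for Cp and 1.10 for Hpx, which encode orosomucoids, a metalloreductase, haptoglobin, serum amyloid P, ceruloplasmin and hemopexin. Of these, Hp and Orm1 met the largest score in 4 and in 2 of the Con A + PBS mice, so their changes are limited by that ceiling. The 4 genes not called were 0.30 for Fga, 0.34 for Fgg, 0.53 for Itih3 and 0.77 for Hamp. Fga was at the largest score in 3 controls and all 4 Con A + PBS mice, and Hamp, which encodes the iron hormone hepcidin, scored 10972, 8544, 13961 and 4291 in the controls and 18948, 16364, 16364 and 9428 after Con A.

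Serpina3 genes, the mouse relatives of alpha-1-antichymotrypsin, formed a run of 7 neighbouring genes of the table that were all called higher (chr12:104146382-104414329, mm10). Serpina3n went from 4466, 6046, 8248 and 8920 to 341028, 147960, 147960 and 341028 (log2 fold change 5.07, SE 0.31, adjusted p = 2.1e-07), and Serpina3m from 4224, 7384, 6064 and 7384 to 148316, 58393, 72892 and 148316 (log2 fold change 4.01, SE 0.43, adjusted p = 1.4e-05). The others were at 5.53 for Serpina3i, 5.15 for Serpina3f, 3.93 for Serpina3c, 2.23 for Serpina3k and 1.35 for Serpina3g. These genes are near copies of each other, so the share of each is uncertain while the direction was the same in all 7.

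The promoters of Saa3 and Serpina3i are shown because they belong to the genes with the largest increases that hold the letters of the interferon, C/EBP and STAT motifs. Saa3 held 1 match to GAAANNGAA, the core of the interferon-stimulated response element, and 1 match to the C/EBP letters TTGCNNAA, here on the opposite strand. Serpina3i held 1 match to TTCNNNGAA, the letters of the STAT element. Capitals mark these matches in the 250 bases before each start, at chr7:46715677-46715926 on the minus strand and chr12:104262872-104263121 on the plus strand (GRCm38.p6, RefSeq).
Saa3: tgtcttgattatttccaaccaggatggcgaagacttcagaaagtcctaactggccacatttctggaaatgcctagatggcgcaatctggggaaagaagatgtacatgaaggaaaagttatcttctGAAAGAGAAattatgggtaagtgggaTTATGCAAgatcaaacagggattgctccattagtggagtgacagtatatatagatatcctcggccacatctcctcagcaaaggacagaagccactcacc
Serpina3i: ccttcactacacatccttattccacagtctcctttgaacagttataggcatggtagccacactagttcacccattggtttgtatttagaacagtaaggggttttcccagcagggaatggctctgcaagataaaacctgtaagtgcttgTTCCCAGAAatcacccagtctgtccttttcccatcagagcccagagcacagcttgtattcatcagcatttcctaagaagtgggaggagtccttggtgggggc

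Plasma proteins that the healthy liver makes in quantity mostly fell. Of 31 listed genes, 18 were called lower, 3 higher and 10 neither, with a median log2 fold change of -0.85. Serpina6, the corticosteroid-binding globulin, went from 5783, 4860, 4408 and 4310 to 134, 60, 80 and 378 (log2 fold change -5.25, SE 0.47, adjusted p = 3.3e-06). Igfals, the partner that holds insulin-like growth factor in plasma, went from 1944, 2072, 3192 and 2216 to 172, 258, 196 and 127 (log2 fold change -3.66, SE 0.35, adjusted p = 5.6e-06). Rbp4, the carrier of retinol, went from 72783, 58210, 34419 and 58210 to 10370, 13253, 11618 and 9880, and Ttr, which carries thyroid hormone, from 341028, 72623, 72623 and 72623 to 34256, 44292, 34256 and 34256, with log2 fold changes of -2.27 and -1.55. Both carriers were lower in every Con A + PBS mouse than in any control. The vitamin D carrier Gc, at the largest score in 3 controls, had a log2 fold change of -1.42, with overlap between the groups. Against the others, Serpina7, the thyroxine-binding globulin, rose by 2.75 on the log2 scale (SE 0.51, adjusted p = 0.00071), and the protease inhibitors Serpina3k and Pzp rose to the largest score in all 4 Con A + PBS mice. Plg, plasminogen, was not called and its 95% interval was -0.21 to 0.40 on the log2 scale. Pzp was at 1.48, and at 0.80 without control mouse 1. The call of Pzp was lost without any 1 of the Con A + PBS mice (adjusted p from 0.0502 to 0.0574), and without control mouse 1 its change was 0.80.

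Complement genes were called lower in 16 of 32 measured and higher in 5, the latter a share under that of all genes. The 3 chains of C1q, which start the classical pathway and are made by macrophages, fell with log2 fold changes of -1.94 for C1qa, -1.85 for C1qc and -1.66 for C1qb, and Fcna, the ficolin of macrophages, went from 724, 548, 496 and 586 to 72, 80, 58 and 55 (log2 fold change -3.13, SE 0.19, adjusted p = 2.1e-07). Parts of the membrane attack complex were lower too, at -2.03 for C6, -1.95 for C8g, -1.73 for C9 and -0.90 for C8b. C4b had a log2 fold change of -1.52. Cfb, factor B of the alternative pathway, rose from 17639, 20852, 20852 and 18904 to 44484, 44484, 44484 and 23572 (log2 fold change 0.96, SE 0.20, adjusted p = 0.001). The receptor C5ar1 of myeloid cells was at 1.39, and C1s1 and Cfhr2 were at 0.65 and 0.86 with overlapping groups. C3 stood at the largest score in 3 controls and in no Con A + PBS mouse (log2 fold change -0.91). Without control mouse 1, 3 rather than 5 of the components were called higher. C8b lost its call without control mouse 2, 3 or 4 or Con A + PBS mouse 4, with changes from -0.90 to -0.52, and C1s1 without control mouse 1 or 3 or Con A + PBS mouse 1, 2 or 3, with changes from 0.55 to 0.65.

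Of 28 coagulation genes measured, 12 were called lower and 9 higher. Of these, 6 of the higher genes were under the table's minimum in the controls and 1 lower gene reached it in controls alone, and of the 21 that reached it on both sides, 11 were lower and 3 higher. The decreases included clotting factors and anticoagulants of hepatocytes, with log2 fold changes of -3.60 for Klkb1, -2.08 for F13b, -1.80 for Serpind1, -1.51 for F5, -1.47 for F7, -1.34 for F2 and -1.30 for Proc, where Klkb1 is plasma prekallikrein, F2 prothrombin and Proc protein C. Klkb1 fell furthest, from 2828, 3272, 3364 and 3921 to 242, 678, 306 and 110. Among the increases were F13a1, the factor XIII chain of macrophages and platelets, Plaur, the urokinase receptor, Procr, the endothelial protein C receptor, and Thbd, thrombomodulin, at 4.34 for F13a1, 4.21 for Plaur, 3.86 for Procr and 2.75 for Thbd. Plaur went from 8, 11, 8 and 4 to 168, 131, 115 and 220, and Thbd from 24, 29, 28 and 43 to 248, 164, 180 and 266. Hepatocyte factors were among the increases too, with F11 at 1.22 and Cpb2, which protects clots from plasmin, at 1.10. Of the fibrinogen chains Fgb was called at 1.16, with all 4 Con A + PBS mice at the largest score, and Fgg was not called, with an interval of -0.24 to 0.92. F13a1 was at 3.69 without control mouse 4 and Serpind1 at -1.12 without Con A + PBS mouse 4.

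Apolipoproteins and the enzymes of lipoproteins were lower in 9 of 22 measured genes and higher in 4. Apoa2 and Apoa1, the main proteins of high-density lipoprotein, went from 341028, 147684, 147684 and 147684 to 34334, 34334, 34334 and 34334 and from 147628, 147628, 147628 and 147628 to 34316, 44442, 44442 and 58038 (log2 fold changes -2.41 and -1.73). Apoe was at the largest score in all 4 controls and in none of the Con A + PBS mice, and Lipc, hepatic lipase, was at -1.77. The increases were 1.75 for Apoc2, 1.42 for Apoa4, 0.92 for Apobr and 0.81 for Mttp. Apoc2, the activator of lipoprotein lipase, went from 2818, 2000, 2494 and 2196 to 7334, 7600, 8520 and 8224, opposite to Apoc1 and Apoc4 of the same gene cluster at -1.35 and -1.62.

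Several chemokines that draw T cells, monocytes and neutrophils rose. Of 14 CXC and CX3C chemokines listed 8 were in the table, 5 of them called higher and 2 lower, and of the 5 that reached its minimum on both sides 4 were higher and 1 lower. Cxcl10, which with Cxcl9 attracts activated T cells through the receptor CXCR3, went from 52, 110, 82 and 74 to 5134, 1626, 2078 and 9858 (log2 fold change 5.54, SE 0.52, adjusted p = 4.3e-06). Cxcl1 and Cxcl2, which attract neutrophils, went from 170, 308, 282 and 348 to 2176, 1806, 1598 and 1958 and from 2, 7, 5 and 2 to 223, 96, 92 and 436 (log2 fold changes 2.80 and 5.24). Cxcl13 and Cxcl12, which guide B cells and resting leukocytes, were lower at -1.99 and -1.19. Of 20 CC and XC chemokines listed only 6 were in the table. Of these, 4 were called higher and 2 lower, but 3 of the 4 entered the table through mice given Con A, and of the 3 that reached it on both sides 1 was higher and 2 lower. Ccl2 and Ccl7, the attractants of monocytes, went from 12, 22, 31 and 12 to 862, 694, 605 and 795 and from 3, 6, 0 and 12 to 217, 186, 172 and 122 (5.29 for Ccl2 and 5.30 for Ccl7). Ccl5 was at 1.65 and Ccl6 at 0.92, against -1.64 for Ccl27a and -0.66 for Ccl9. The receptors Ccrl2, Ccr1, Cxcr2 and Ccr2 were higher at 3.36 for Ccrl2, 3.24 for Ccr1, 2.71 for Cxcr2 and 0.72 for Ccr2, whereas Xcr1 of cross-presenting dendritic cells was lower at -0.75. Of 19 chemokine receptors listed 6 were in the table, 3 of the 4 higher ones through mice given Con A, and of the 3 that reached the minimum on both sides 1 was higher and 1 lower. Ccl7 was at 4.59 without control mouse 3.

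The promoter of Cxcl9 is shown because Cxcl9 had the largest increase of the chemokines and held, on the opposite strand, the kappa B letters GGGANTTTC, which are in capitals in the 250 bases at chr5:92328080-92328329 on the minus strand (GRCm38.p6, RefSeq).
Cxcl9: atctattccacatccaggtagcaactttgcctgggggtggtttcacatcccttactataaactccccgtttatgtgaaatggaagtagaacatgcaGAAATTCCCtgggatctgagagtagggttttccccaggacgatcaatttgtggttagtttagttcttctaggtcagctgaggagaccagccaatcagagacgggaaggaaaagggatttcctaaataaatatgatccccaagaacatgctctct

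Cytokine genes were few in the table and did not move as a block: 8 of 19 rose and 6 fell. Of 42 listed, 3 entered through mice given Con A, all called higher, 4 through controls alone, all called lower, and 12 reached the minimum on both sides, 5 of them higher and 2 lower. Lif, of the interleukin 6 family, went from 1, 2, 0 and 0 to 68, 54, 42 and 84 (log2 fold change 5.29, SE 0.68, adjusted p = 5.1e-05). Il18bp, which neutralises interleukin 18, went from 242, 416, 322 and 205 to 2168, 1978, 2291 and 924 (log2 fold change 2.60, SE 0.27, adjusted p = 1.1e-05), while Il18 itself went from 196, 155, 114 and 124 to 28, 34, 30 and 18 (log2 fold change -2.38, SE 0.25, adjusted p = 1.1e-05). The alarmin Il33 and the activin chain Inhbb rose at 1.87 and 2.23, and Mif at 1.33. Bmp2 and Gdf2, the endothelial and stellate ligands that act on hepatocyte iron control and on vessels, fell at -2.48 and -1.58. Receptors were higher in 19 of 35 genes and lower in 5, and of the 28 that reached the minimum on both sides 13 were higher and 5 lower. Osmr, the receptor of oncostatin M, went from 118, 66, 92 and 72 to 597, 439, 527 and 704, and Il1r1 from 792, 838, 1018 and 1649 to 4022, 3432, 4169 and 7908 (log2 fold changes 2.71 and 2.17). Tnfrsf12a, the receptor of the cytokine TWEAK, was at 3.65 and Tnfrsf9 of activated lymphocytes at 4.91. The largest increase among receptors was that of Il1r2, a decoy that binds interleukin 1 without signalling, from 0, 0, 4 and 0 to 105, 94, 86 and 116 (log2 fold change 6.07, SE 0.66, adjusted p = 1.4e-05). Lifr and Il1rap were lower at -1.89 and -2.19, so Lif and its receptor gene moved in opposite directions.

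NF-kB genes rose in 18 of 28 and fell in none, and of the 23 that reached the table's minimum on both sides 14 were higher. The largest increase was that of Tnfaip3, the ubiquitin-editing enzyme A20 that ends NF-kB signalling, from 44, 75, 49 and 50 to 838, 406, 623 and 1026 (log2 fold change 3.65, SE 0.28, adjusted p = 1.1e-06). The subunits Relb and Nfkb2 of the non-canonical pathway were at 1.71 and 1.56, and Nfkb1 and Rela of the canonical pathway at 0.76 and 0.75, while Rel was not called at 0.34. The inhibitors Nfkbia, Nfkbiz and Nfkbie rose at 1.16 for Nfkbia, 1.32 for Nfkbiz and 1.27 for Nfkbie. The kinases Chuk and Ikbkb were not called, with intervals of -0.35 to 0.40 and -0.07 to 0.49.

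Immediate early genes, which respond to stress and growth signals within minutes, were called higher at 24 h in 19 of 30 and lower in 1. Of the 10 that entered the table through mice given Con A, 9 were higher, and of the 20 that reached it on both sides, 10 were higher and 1 lower. Atf3, a stress-induced transcription factor, went from 22, 18, 37 and 27 to 1240, 372, 458 and 3488 (log2 fold change 5.15, SE 0.68, adjusted p = 5.6e-05), and Myc from 106, 58, 39 and 48 to 578, 282, 274 and 1692 (log2 fold change 3.15, SE 0.50, adjusted p = 0.00023). Jun and Fosl2 of AP-1 rose, Jun at 2.04. Fos scored 16, 46, 14 and 19 and 140, 46, 62 and 454, where mouse 4 was the highest and the groups overlapped (log2 fold change 2.41). Ier3 was at 5.14 and Klf4 at 4.02. Egr1 was not called at 0.58 with an interval of -0.65 to 1.81. Of 17 genes for Toll-like receptors and lipopolysaccharide sensing, 8 rose and 3 fell, 4 and 2 among the 12 that reached the minimum on both sides, with Tlr2 at 2.96, the inhibitor Irak3 at 3.22, Myd88 at 1.14 and Tlr5 at -0.82. Without Con A + PBS mouse 1, Tlr5 had an adjusted p of 0.0514 and 1 rather than 3 of these genes was called lower. Atf3 was at 4.51 without Con A + PBS mouse 4 and Fos at 1.76 without Con A + PBS mouse 4.

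Interferon-induced GTPases rose in 15 of 17 genes. Of the guanylate-binding proteins, which attack the vacuoles of microbes inside cells, 7 of 8 were called higher. Gbp6 went from 878, 1764, 1505 and 1144 to 13230, 8908, 11601 and 7132, Gbp3 from 289, 322, 342 and 299 to 4636, 2925, 4354 and 3112 and Gbp7 from 287, 332, 382 and 352 to 5040, 2266, 4195 and 3126 (log2 fold changes 2.96, 3.56 and 3.37). Gbp8 was not called at 0.88. Of the immunity-related GTPases, 8 of 9 rose, led by Tgtp1 from 184, 878, 421 and 445 to 25900, 11676, 14006 and 10414 (log2 fold change 5.11, SE 0.39, adjusted p = 9.8e-07), with Igtp at 3.33, Irgm1 at 2.43 and Iigp1 at 1.84. Irgq, a distant relative, was not called at -0.12. The Tgtp and Gbp genes have near copies whose reads may have been split, so the order within each family is uncertain.

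Antiviral genes of the interferon response rose in 54 of 58, with none lower and a median log2 fold change of 2.20. Rsad2, viperin, which blocks the replication of viruses, went from 67, 207, 152 and 110 to 8498, 3522, 4910 and 6720 (log2 fold change 5.49, SE 0.49, adjusted p = 3.4e-06). Slfn4 went from 29, 16, 27 and 18 to 1308, 1116, 1229 and 1686 (log2 fold change 5.85, SE 0.27, adjusted p = 3.5e-08) and headed a run of 8 neighbouring genes on chromosome 11 that all rose (chr11:82900768-83225869, mm10), of which 6 were Slfn genes. Isg15, a ubiquitin-like modifier, went from 220, 223, 291 and 131 to 6764, 3751, 4938 and 4938, and Ifit2, which binds viral RNA, from 70, 93, 54 and 93 to 2696, 1230, 1751 and 1828 (log2 fold changes 4.58 and 4.56). Further increases were 4.41 for Ifi44, 4.08 for Ifit3, 4.07 for Ifit1, 4.07 for Oasl2, 3.69 for Oas1a, 3.61 for Zbp1, 3.54 for Usp18 and 3.02 for Mx1. The 4 genes not called were 0.13 for Ifitm1, 0.57 for Epsti1, -0.14 for Ifi203 and -0.15 for Lgals9. Ifi44 was at 5.02 without Con A + PBS mouse 4.

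MHC class I and class II differed in their counts. Class I and the immunoproteasome, which cuts and presents peptides to CD8 T cells, rose in 19 of 23 genes. Tap1, the peptide transporter, went from 524, 736, 536 and 518 to 4032, 3798, 3856 and 3003 (log2 fold change 2.67, SE 0.14, adjusted p = 8.7e-08), and Psmb8, an immunoproteasome subunit, from 721, 652, 712 and 569 to 3740, 3639, 3912 and 1587 (log2 fold change 2.20, SE 0.25, adjusted p = 1.9e-05). B2m, the shared light chain, was not called at 0.21 with an interval of -0.06 to 0.48. H2-Q1 was the 1 gene called lower, at -1.95, and H2-Q genes share much sequence. Class II, found on macrophages, dendritic cells and B cells, had no gene higher and 2 of 8 lower, H2-Aa at -0.98 and H2-Eb1 at -0.91. Cd74, the invariant chain, scored 1261, 2014, 1034 and 1592 in the controls and 1108, 1498, 842 and 1569 after Con A, with overlapping groups and an interval of -0.87 to 0.41. Both class II calls were lost without control mouse 2 or 4 or without Con A + PBS mouse 1 or 3, at adjusted p values from 0.0546 to 0.0883.

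Among the factors that carry interferon and cytokine signals, 12 of 30 rose and 4 fell. Irf7 was at 2.54, Irf8 at 2.01, Irf1 at 1.52 and Stat3 at 1.00. The feedback inhibitors diverged: Socs1 went from 7, 19, 13 and 10 to 669, 396, 471 and 735 (log2 fold change 5.46, SE 0.30, adjusted p = 1e-07) and Socs3 was at 2.15, while Socs2, which answers to growth hormone, went from 444, 342, 534 and 525 to 112, 104, 72 and 238 (log2 fold change -1.92, SE 0.30, adjusted p = 0.00021). Stat5b, the mediator of growth hormone in liver, was lower at -0.94, and Stat5a was not called at -0.36.

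Genes of cell death changed unevenly. Of 15 genes for inflammasomes, pyroptosis and necroptosis, 6 rose and 3 fell. Mlkl, the executor of necroptosis, went from 125, 131, 122 and 110 to 680, 389, 628 and 792 (log2 fold change 2.30, SE 0.19, adjusted p = 1.6e-06), and Gsdmd, which forms pores in pyroptosis, was at 0.89. Casp1 was not called, with an interval of -0.11 to 0.46, and Nlrp6 went from 4184, 3740, 4648 and 3310 to 1044, 2236, 1838 and 158 (log2 fold change -2.12, SE 0.62, adjusted p = 0.012). Of 21 genes for death receptors and caspases, 6 rose, 2 fell and 13 were not called. Tnfrsf10b, the receptor of TRAIL, and Apaf1, the core of the apoptosome, were higher at 2.96 and 2.04. Fas was not called, with an interval of -0.22 to 0.82. In the BCL2 family both killers and protectors rose, 10 of 17 in all. Bax went from 282, 320, 282 and 208 to 824, 698, 772 and 962 and Bcl2l1, which encodes BCL-XL, from 647, 594, 628 and 688 to 1672, 1302, 1686 and 3346 (log2 fold changes 1.58 and 1.55). Bbc3 and Bmf, which set off apoptosis, were lower at -1.25 and -1.69. Nlrp6 was at -1.28 without Con A + PBS mouse 4.

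Targets of p53, the factor of DNA damage and growth arrest, were higher in 15 of 24 and lower in 3. Cdkn1a, the cell cycle inhibitor p21, went from 392, 252, 254 and 590 to 2521, 2009, 2492 and 3260 (log2 fold change 2.86, SE 0.25, adjusted p = 2.8e-06). Eda2r, Phlda3 and the 3 Gadd45 genes were at 3.08 for Eda2r, 2.88 for Phlda3, 2.80 for Gadd45g, 1.98 for Gadd45b and 1.91 for Gadd45a. Trp53 itself was not called, with an interval of -0.07 to 0.56, and Sesn1 was lower at -1.15. The call of Eda2r was lost without any 1 of the Con A + PBS mice (adjusted p from 0.0624 to 0.0694), and its change was 1.41 without control mouse 1.

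Targets of the hypoxia-inducible factors rose in 22 of 31, with 1 lower, and in 16 of the 25 that reached the table's minimum on both sides, with 1 lower. Hif1a itself scored 674, 948, 838 and 969 in the controls and 3091, 1893, 2014 and 9880 after Con A, where mouse 4 was the highest (log2 fold change 1.95, SE 0.41, adjusted p = 0.002). Hilpda, a lipid droplet protein, and Adm, adrenomedullin, went from 28, 24, 36 and 16 to 348, 202, 324 and 1192 and from 20, 8, 12 and 16 to 270, 108, 108 and 651 (log2 fold changes 3.97 and 3.90). Vegfa was not called, at 4920, 3354, 4097 and 3854 against 3260, 2753, 2816 and 4548 with an interval of -0.72 to 0.13. Of 21 genes of glycolysis and its regulation that are not particular to hepatocytes, 16 rose and 3 fell, the latter Pfkm, the muscle form of phosphofructokinase, Aldoc, the brain form of aldolase, and Pdk1, a kinase that restrains the use of pyruvate in mitochondria, at -1.28 for Pfkm, -0.62 for Aldoc and -1.44 for Pdk1. Pkm, the pyruvate kinase outside the hepatocyte, went from 279, 409, 263 and 330 to 5246, 4830, 4036 and 6528 (log2 fold change 4.01, SE 0.22, adjusted p = 9.2e-08), and Pklr, the hepatocyte form, from 5925, 3810, 2107 and 5144 to 978, 1088, 950 and 722 (log2 fold change -2.10, SE 0.28, adjusted p = 5.6e-05). The same opposition held between Slc2a1 and Slc2a2, the glucose transporters GLUT1 and GLUT2, at 2.65 and -3.36, and the hexokinases Hk2 and Hk1 were at 1.47 and 1.57. Gapdh, often used as a reference gene, was not called at -0.36. Aldoc fell short of 1.5-fold without control mouse 1 or 4 or Con A + PBS mouse 3, at -0.57, -0.51 and -0.57.

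Chaperones of the endoplasmic reticulum and the integrated stress response rose in 27 of 36, with none lower. Hspa5, the chaperone BiP, went from 8577, 15198, 19007 and 11676 to 72892, 341028, 148316 and 72892 (log2 fold change 3.30, SE 0.68, adjusted p = 0.001), and Creld2, Pdia4, Pdia6 and Hsp90b1 were at 2.62 for Creld2, 2.32 for Pdia4, 2.22 for Pdia6 and 1.96 for Hsp90b1. Among the genes of serine and asparagine synthesis in this list, known targets of ATF4, Psat1 went from 0, 24, 7 and 18 to 257, 161, 250 and 716 (log2 fold change 5.23, SE 0.84, adjusted p = 0.00023), Phgdh was at 3.40 and Asns at 2.69, while Psph was not called at 0.54. Of the sensors of this response, Eif2ak3, the kinase PERK, rose at 0.83, whereas Atf6 and Ern1 and the effector Atf4 were not called, with intervals of -0.39 to 0.56, -0.86 to 0.00 and 0.13 to 0.81. Heat shock chaperones of the cytosol were higher in 22 of 32 and lower in none, with Hspa1a from 6, 8, 26 and 32 to 270, 254, 206 and 134 and Hsp90aa1 from 2057, 3161, 2971 and 2181 to 12210, 18917, 16327 and 7945 (log2 fold changes 3.77 and 2.37). Psat1 was at 4.24 without control mouse 1.

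Antioxidant genes were divided, with 7 higher, 9 lower and 14 not called of 30. Cat, catalase, went from 58393, 58393, 58393 and 58393 to 8577, 14006, 9922 and 6578 (log2 fold change -2.63, SE 0.33, adjusted p = 3.7e-05), and Gpx1, glutathione peroxidase 1, was at -1.47, while Sod2, the mitochondrial superoxide dismutase, went from 3252, 2459, 2716 and 2387 to 12175, 6916, 9353 and 8862 (log2 fold change 1.77, SE 0.19, adjusted p = 1.5e-05). Nqo1 was lower at -1.55, Srxn1 higher at 1.94 and Nfe2l2, which encodes NRF2, not called with an interval of -0.28 to 0.32. Among 33 genes of metal handling, 9 rose and 11 fell. The metallothioneins Mt1 and Mt2 went from 8514, 3636, 9381 and 5239 to 44442, 25781, 34316 and 23556 and from 4646, 2604, 3532 and 3484 to 25781, 17632, 25781 and 13920 (2.31 for Mt1 and 2.52 for Mt2), the zinc importer Slc39a14 was at 1.68 and the iron exporter Slc40a1 at -1.94. The ferritin chains moved apart, Fth1 at 1.22 and Ftl1 at -1.41. Hamp2, a near copy of the hepcidin gene, went from 20917, 5256, 2362 and 3452 to 274, 90, 125 and 621 (log2 fold change -4.70, SE 0.64, adjusted p = 7.4e-05), against the interval of -0.03 to 1.58 for Hamp, and reads of the 2 copies may have been mixed. Hamp2 was at -4.06 without control mouse 1.

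Genes for making proteins rose. Of 59 ribosome biogenesis factors, 41 were called higher and none lower, with a median log2 fold change of 0.84. Npm1, nucleophosmin, went from 3168, 2792, 2830 and 2584 to 13253, 11618, 10370 and 17674 (log2 fold change 2.19, SE 0.20, adjusted p = 4e-06), and Rrp12, Tsr1 and Heatr1 were at 1.82 for Rrp12, 1.49 for Tsr1 and 1.40 for Heatr1. Aminoacyl-tRNA synthetases rose in 13 of 23, led by Wars at 1.45, the tryptophan enzyme that interferon gamma is known to induce. Of 6 cytosolic ribosomal protein genes measured, 5 rose, Rplp2 most at 1.41. The constitutive proteasome rose in 12 of 36, and the changes ran from -0.15 for Psmd11, not called, to 1.30 for Psmd8. Of 39 lysosomal genes, 18 rose and 7 fell. Atp6v0d2, a proton pump subunit of macrophages, went from 751, 462, 831 and 527 to 40, 61, 38 and 45 (log2 fold change -3.76, SE 0.34, adjusted p = 3.7e-06), opposite to Atp6v1d and Atp6v0a2 of the same pump at 0.99 and 0.99, whereas Atp6v0d1, its form in most cells, was not called at 0.13, and Lgmn, legumain, was at 1.55.

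Of the cell cycle genes more rose than fell, and the shares that fell were under that of all genes. Of 33 genes of DNA replication, 14 rose and 3 fell, 9 and 3 among the 26 that reached the table's minimum on both sides, with the helicase genes Mcm2, Mcm6 and Mcm3 at 1.71 for Mcm2, 1.37 for Mcm6 and 1.24 for Mcm3 and Uhrf1 at 3.30. Tk1, thymidine kinase, went the other way, from 863, 468, 346 and 420 to 48, 72, 44 and 19 (log2 fold change -3.54, SE 0.44, adjusted p = 3.8e-05). Of 19 mitotic and cyclin genes, 10 rose and 3 fell, 7 and 2 among the 15 that reached the minimum on both sides. Mki67, the marker of dividing cells, scored 44, 154, 46 and 78 and 164, 226, 173 and 77, with overlapping groups, and Ccnd1, cyclin D1, 371, 806, 1293 and 1170 and 350, 332, 332 and 408, also overlapping (log2 fold changes 1.07 and -1.21). Of 14 genes of EGF receptor and MET signalling, which carries growth signals in regeneration, 3 were higher and 3 lower, shares close to those of all genes. The higher were the EGF receptor ligands Ereg, Tgfa and Btc at 3.05 for Ereg, 1.86 for Tgfa and 1.76 for Btc, 2 of which entered the table through mice given Con A, and the lower Hgfac, Grb7 and Gab1 at -1.48 for Hgfac, -1.30 for Grb7 and -0.63 for Gab1. Egfr, Met and Hgf were not called at 0.35 for Egfr, -0.36 for Met and -0.48 for Hgf. Gab1 fell short of 1.5-fold without control mouse 2 or 4 or Con A + PBS mouse 2, at -0.55, -0.56 and -0.58. The call of Mki67 was lost without any 1 mouse other than control mouse 2 and Con A + PBS mouse 4, with adjusted p between 0.0622 and 0.121. Uhrf1 was at 4.00 without control mouse 2.

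**Figure D3:**
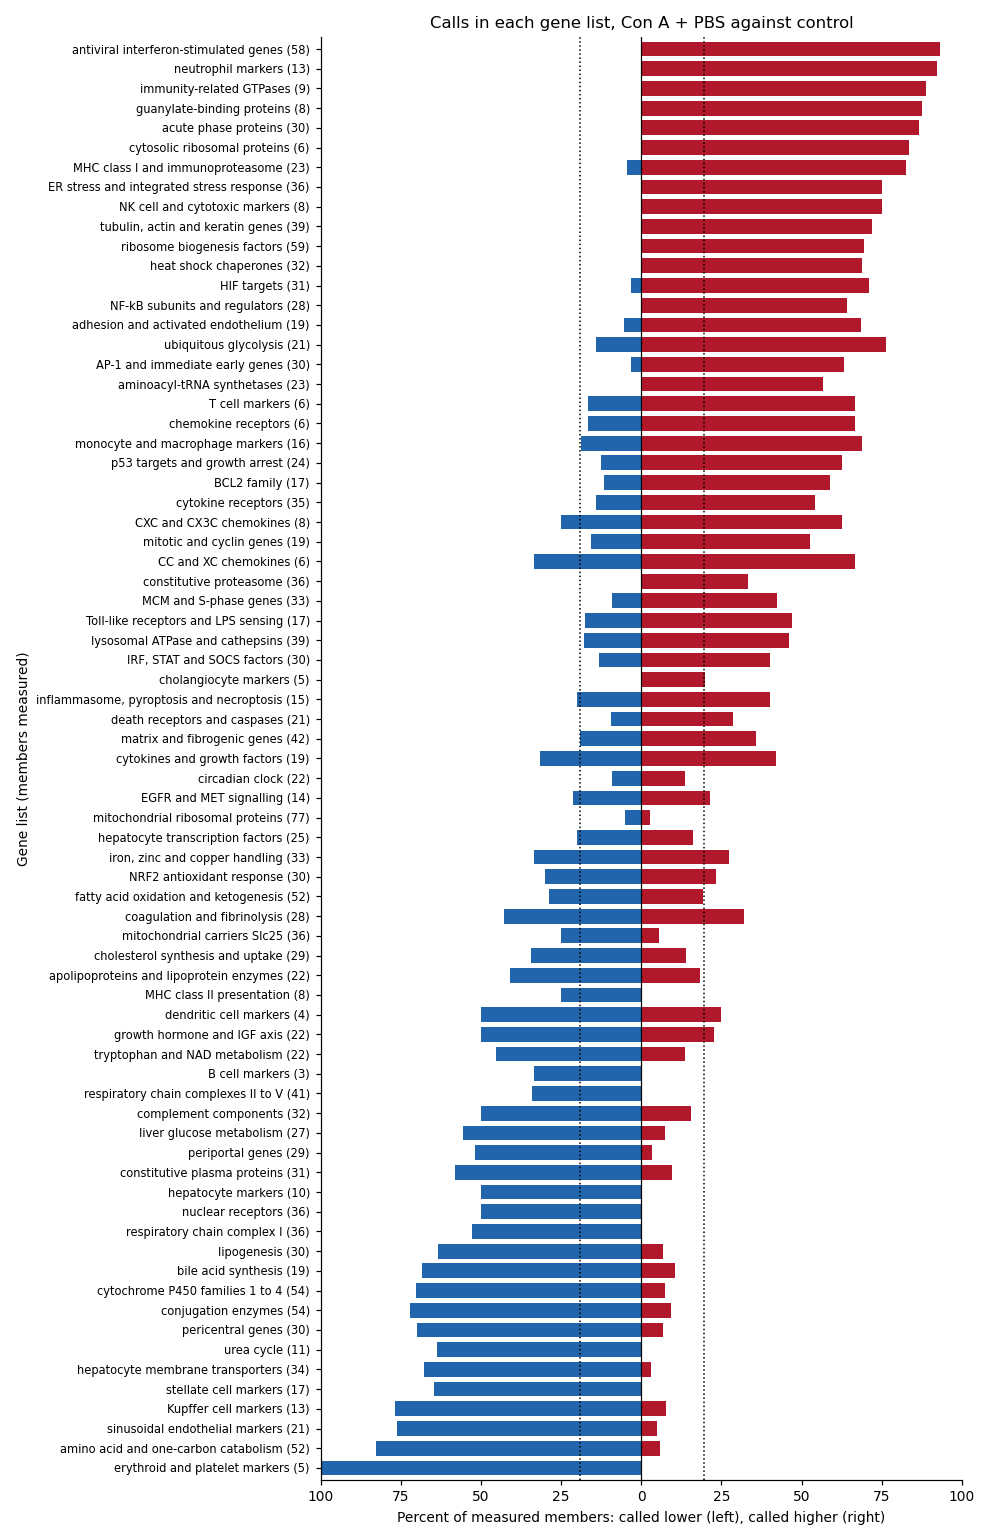
Share of the measured members of each of 73 gene lists that were called higher (red, to the right) or lower (blue, to the left) in Con A + PBS than in control livers, in percent on the horizontal axis. The number of members measured stands beside each list name on the vertical axis. The dotted lines mark 19.5% and 19.2%, the shares over all genes. Antiviral interferon-stimulated genes, neutrophil markers and immunity-related GTPases reach farthest to the right, and erythroid, amino acid catabolism and Kupffer cell lists farthest to the left. Members that entered the table through 1 kind of mouse alone are included, such as 11 of the 13 neutrophil markers.

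Genes for the metabolic work of hepatocytes were mostly lower. Cytochrome P450 families 1 to 4, the enzymes that oxidise drugs, steroids and fatty acids, were lower in 38 of 54 genes and higher in 4, with a median log2 fold change of -2.04. Cyp2b13 went from the values given above to 54, 130, 66 and 82 (log2 fold change -5.08, SE 0.35, adjusted p = 4.9e-07). Cyp1a2, which handles caffeine, went from 10944, 9400, 6748 and 8898 to 475, 278, 290 and 832 (log2 fold change -4.39, SE 0.31, adjusted p = 6e-07), and Cyp2e1, which handles ethanol and paracetamol, from 72892, 341028, 148316 and 148316 to 21000, 34530, 25900 and 34530 (log2 fold change -2.43, SE 0.39, adjusted p = 0.00023). Cyp4a14, a fatty acid hydroxylase induced by the receptor PPAR alpha, rose from 7954, 6944, 6040 and 6536 to 11601, 15102, 17660 and 18931 (log2 fold change 1.19, SE 0.18, adjusted p = 0.00019), and Cyp4a12a rose from the low scores given above to 93, 138, 98 and 26 (log2 fold change 2.49, SE 0.53, adjusted p = 0.002). Other members were not called, and Cyp2a12, Cyp2d26 and Cyp4a10 had intervals of -0.14 to 0.36, -0.73 to 0.17 and -0.47 to 0.65. The decreases ran along the chromosomes: 12 neighbouring Cyp2c genes on chromosome 19 (chr19:39007019-40187286, mm10) and 7 Cyp3a genes on chromosome 5 (chr5:145436309-146113285) were all lower. The first run reached from -5.02 for Cyp2c50 and -0.93 for Cyp2c39, and reads may have been split between these close copies.

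Conjugation enzymes, which attach glutathione, glucuronic acid or sulfate, fell in 39 of 54 and rose in 5. Gstm3 went from 1176, 1034, 500 and 871 to 43, 26, 39 and 100, Ugt2b1 from 6046, 7140, 5925 and 7140 to 530, 592, 450 and 598 and Sult2a2 from 8920, 7356, 6952 and 4386 to 502, 878, 760 and 831 (log2 fold changes -4.19, -3.60 and -3.20). Gsta1 and Sult1e1, the estrogen sulfotransferase, rose against the others, from 44, 44, 1 and 36 to 328, 371, 298 and 436 and from 186, 95, 122 and 71 to 527, 425, 523 and 1729 (4.18 for Gsta1 and 2.58 for Sult1e1). Nnmt, which methylates nicotinamide, was at 1.51. Gsta1 was at 3.08 without control mouse 3.

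The promoter of Ugt1a10, a glucuronosyltransferase that went from 164, 94, 136 and 78 to 6, 0, 14 and 18 (log2 fold change -4.09, SE 0.75, adjusted p = 0.00064), is shown as the gene with the largest fall that held the HNF1 letters GTTAATNAT. They are in capitals, on the opposite strand, in the 250 bases at chr1:88055161-88055410 on the plus strand (GRCm38.p6, RefSeq). Ugt1a transcripts share their last exons, so the 7 Ugt1a genes of that run on chromosome 1, all lower, are not independent. Ugt1a10 was at -3.18 without Con A + PBS mouse 2.
Ugt1a10: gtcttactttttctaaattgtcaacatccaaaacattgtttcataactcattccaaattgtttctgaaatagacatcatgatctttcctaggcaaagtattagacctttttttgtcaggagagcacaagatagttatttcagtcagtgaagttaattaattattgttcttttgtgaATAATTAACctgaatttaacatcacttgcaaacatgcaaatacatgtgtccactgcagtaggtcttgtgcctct

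Of 19 genes of bile acid synthesis and its control, 13 were lower and 2 higher. Cyp7a1, the rate-limiting enzyme, went from 7356, 1768, 3406 and 2503 to 35, 119, 54 and 64 (log2 fold change -5.69, SE 0.53, adjusted p = 4.1e-06), and Cyp8b1, which directs the path to cholic acid, from 4732, 2572, 3079 and 3079 to 32, 301, 90 and 7 (log2 fold change -5.98, SE 1.06, adjusted p = 0.00049). Cyp27a1 of the alternative path was at -2.30, and Akr1c6, Akr1d1 and Hsd3b7, which act on the ring, at -5.23 for Akr1c6, -5.22 for Akr1d1 and -0.94 for Hsd3b7. Of the later steps on the side chain, Slc27a5 and Amacr were lower at -1.70 and -0.66, Baat, Hsd17b4 and Scp2 were not called at -0.30 for Baat, 0.14 for Hsd17b4 and -0.40 for Scp2, and Acox2 and Acot8 rose at 0.89 and 0.63. Nr0b2, the receptor SHP that is known to repress Cyp7a1, was lower as well, from 935, 991, 969 and 1029 to 238, 369, 345 and 22 (log2 fold change -2.59, SE 0.67, adjusted p = 0.006), with Fgfr4 and Klb, the receptor pair for the intestinal hormone FGF15, at -1.37 and -2.70. Acot8 fell short of 1.5-fold, at 0.58, without Con A + PBS mouse 1, and without mouse 4 Amacr fell short at -0.41 and Nr0b2 was at -1.65. Cyp8b1 was at -6.83 without Con A + PBS mouse 2 and -5.08 without Con A + PBS mouse 4.

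The promoters of Cyp8b1 and Akr1d1, which encodes a steroid reductase of bile acid synthesis, belong to the genes with the largest falls that held the HNF4 letters CAAAGTCC and the C/EBP letters TTGCNNAA. The letters are in capitals in the 250 bases at chr9:121916306-121916555 on the minus strand and chr6:37529923-37530172 on the plus strand (GRCm38.p6, RefSeq), the C/EBP match being on the opposite strand.
Cyp8b1: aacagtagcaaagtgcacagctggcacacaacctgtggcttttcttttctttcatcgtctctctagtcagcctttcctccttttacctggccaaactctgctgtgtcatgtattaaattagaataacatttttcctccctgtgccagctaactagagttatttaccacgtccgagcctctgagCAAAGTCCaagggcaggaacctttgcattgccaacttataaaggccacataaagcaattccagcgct
Akr1d1: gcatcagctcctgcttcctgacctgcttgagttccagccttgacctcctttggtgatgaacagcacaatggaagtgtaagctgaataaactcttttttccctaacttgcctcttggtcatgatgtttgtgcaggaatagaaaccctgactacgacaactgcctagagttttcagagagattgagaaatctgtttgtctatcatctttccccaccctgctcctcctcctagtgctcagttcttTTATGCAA

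Membrane transporters of hepatocytes fell in 23 of 34 genes and rose in 1. Abcb11, the bile salt export pump, went from 17671, 20910, 18944 and 23644 to 1420, 3493, 2084 and 600 (log2 fold change -3.67, SE 0.46, adjusted p = 4.1e-05), and Slc10a1, the sodium-dependent bile acid uptake carrier, from 13327, 7660, 9922 and 14006 to 1127, 2885, 1946 and 578 (log2 fold change -2.98, SE 0.47, adjusted p = 0.00021). Abcc2 and the cholesterol exporters Abcg5 and Abcg8 fell less, at -1.25 for Abcc2, -1.05 for Abcg5 and -1.06 for Abcg8, and Abcb4 and Abcc3 were not called with intervals of -0.74 to 0.08 and -0.22 to 0.48. The 1 increase was Slc22a5, the carnitine carrier, from 276, 240, 383 and 319 to 1296, 827, 1410 and 2352 (log2 fold change 2.19, SE 0.30, adjusted p = 7.6e-05).

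Of 25 genes for transcription factors that keep hepatocyte identity, 16 were not called, 5 fell and 4 rose. Hnf4a scored 6316, 11588, 9858 and 15086 in the controls and 11588, 13212, 12210 and 10944 after Con A, with an interval of -0.25 to 0.70, and Foxa2 and Cebpb had intervals of -0.61 to 0.04 and -0.43 to 1.02. Cebpa was lower at -0.90 with overlap, and Klf15 at -1.78. The secretory factors Xbp1 and Creb3l3 rose at 0.98 and 0.97. Of 36 nuclear receptors and coregulators, 18 fell and none rose. Nr1i3, the receptor CAR that switches on drug metabolism, went from 3866, 4044, 3751 and 3751 to 1382, 2343, 2004 and 676 (log2 fold change -1.41, SE 0.30, adjusted p = 0.002), Esr1 was at -1.38 and Nr1h5 at -4.01, while Ppara, Rxra and Nr1h3 were not called with intervals of -0.56 to 0.86, -0.63 to 0.37 and -0.34 to 0.19. Nr1h5 was at -2.98 without Con A + PBS mouse 4.

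In the growth hormone and IGF axis, 11 of 22 genes fell and 5 rose. Ghr, the growth hormone receptor, went from 13958, 11614, 10366 and 13958 to 2503, 3808, 2732 and 1740 (log2 fold change -2.25, SE 0.22, adjusted p = 5.5e-06), and Prlr, the prolactin receptor, from 8542, 7624, 9876 and 8246 to 908, 958, 982 and 1088 (log2 fold change -3.12, SE 0.15, adjusted p = 4.9e-08). Igf1 was at -0.70. Binding proteins differed: Igfbp5 and Igfbp2 were at -4.43 and -2.13, whereas Igfbp1, which hepatocytes raise in injury and fasting, went from 4190, 2181, 656 and 3914 to 13937, 4374, 13212 and 29668 (log2 fold change 2.50, SE 0.70, adjusted p = 0.009). Lepr, the leptin receptor, went from 200, 296, 136 and 342 to 1017, 596, 1820 and 5255 (log2 fold change 2.75, SE 0.54, adjusted p = 0.001). Lepr was at 2.17 without Con A + PBS mouse 4.

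The breakdown of amino acids was lower in 43 of 52 genes and higher in 3. Bhmt, which remethylates homocysteine, went from 341028, 72892, 341028 and 341028 to 13327, 44970, 29795 and 3467 (log2 fold change -3.88, SE 0.82, adjusted p = 0.002), Prodh, the proline oxidase, was at -3.28, Hpd of tyrosine breakdown at -2.72 and Gnmt at -2.30. Mat1a, which makes S-adenosylmethionine, and Cdo1, which oxidises cysteine, rose at 1.41 and 1.28, with Mat1a at the largest score in 3 of the 4 Con A + PBS mice, so that its change is limited by that ceiling, and Tat, tyrosine aminotransferase, was not called with an interval of -0.87 to 1.06. In the urea cycle Otc went from 13961, 8920, 10370 and 9428 to 899, 1592, 875 and 1337 and Ass1 from 72700, 34334, 25790 and 72700 to 6150, 7936, 7936 and 13926 (log2 fold changes -3.21 and -2.44). Cps1, the first enzyme of the cycle, had the same score of 147960, in the set next to the largest, in all 8 mice. In tryptophan and NAD metabolism 10 of 22 fell and 3 rose. Tdo2, the first enzyme of tryptophan breakdown, went from 18948, 16364, 8544 and 17674 to 58210, 58210, 58210 and 58210 (log2 fold change 1.98, SE 0.21, adjusted p = 1.2e-05), while the next enzymes Afmid, Kynu and Haao were lower at -3.96 for Afmid, -2.13 for Kynu and -2.14 for Haao. Nampt, which salvages nicotinamide, rose at 2.05, and Aox3, an aldehyde oxidase, went from 2408, 2776, 4022 and 3186 to 44, 298, 56 and 46 (log2 fold change -5.30, SE 0.68, adjusted p = 5e-05). Aox3 was at -5.94 without Con A + PBS mouse 2 and Bhmt at -3.15 without Con A + PBS mouse 4.

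Genes for the storage and release of glucose fell in 15 of 27 and rose in 2. Pygl, glycogen phosphorylase, was at -2.12 and G6pc, the last step of glucose release, at -1.57. Pck1 and Fbp1, the committed steps of making glucose, were not called, with intervals of -1.20 to 0.06 and -0.43 to 0.16, and Pcx rose at 0.76. Fat synthesis genes fell in 19 of 30 and rose in 2. Fasn, fatty acid synthase, went from 25781, 18894, 15057 and 44442 to 2722, 2354, 2546 and 3354 (log2 fold change -3.13, SE 0.26, adjusted p = 2e-06), Srebf1, its transcription factor, from 5899, 6305, 5376 and 7330 to 1151, 1192, 978 and 1338 (log2 fold change -2.42, SE 0.16, adjusted p = 3.7e-07), and Thrsp and Pnpla3 were at -4.67 and -5.13. Cidec, a lipid droplet protein, rose from 5, 4, 12 and 10 to 660, 290, 845 and 1888 (log2 fold change 6.52, SE 0.63, adjusted p = 5.9e-06), as did the droplet coat Plin2 from 4129, 5608, 6976 and 5276 to 34530, 25900, 34530 and 58393 (log2 fold change 2.76, SE 0.30, adjusted p = 1.3e-05). Of the cholesterol genes, 10 of 29 were lower and 4 higher, with Sqle at 0.81 and the exporter Abca1 at 1.77. Without control mouse 2, Sqle had an adjusted p of 0.0569 and 2 rather than 4 cholesterol genes were called higher.

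In fatty acid oxidation 15 of 52 genes were lower, 10 higher, a share close to that of all genes, and 27 not called. Pdk4, which spares glucose when fat is burned, went from 584, 593, 315 and 426 to 1336, 667, 1939 and 10968 (log2 fold change 2.17, SE 0.66, adjusted p = 0.014), and Angptl4, Vnn1 and Acot2, known targets of PPAR alpha, rose at 1.61 for Angptl4, 2.13 for Vnn1 and 1.41 for Acot2. Cpt1a, the gate of mitochondrial oxidation, was not called, with an interval of -0.00 to 0.78. Hadh and Acaa1b were lower at -1.66 and -2.53. Pdk4 was at 1.37 without Con A + PBS mouse 4.

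Subunits of the respiratory chain encoded in the nucleus were lower by modest amounts. Of 36 complex I genes, 19 were called lower and none higher, and of 41 genes for complexes II to V, 14 lower and none higher. Ndufs8 went from 1736, 1152, 1252 and 1115 to 582, 624, 564 and 595 (log2 fold change -1.13, SE 0.14, adjusted p = 4e-05), and Sdhb from 3970, 2548, 2415 and 2859 to 1227, 1188, 1238 and 1306 (log2 fold change -1.22, SE 0.15, adjusted p = 3.7e-05). Atp5b and Cox4i1 had intervals of -0.35 to 0.50 and -0.38 to 0.12. The mitochondrial ribosome differed from the respiratory chain in its counts, with 71 of 77 genes not called, 4 lower and 2 higher. Of 36 mitochondrial carriers, 9 fell and 2 rose, and the largest decrease was that of Slc25a23, from 3798, 5904, 5380 and 5552 to 590, 1194, 558 and 130 (log2 fold change -3.42, SE 0.51, adjusted p = 0.00014). Control mouse 1 stood above the other controls in the mean of the complex I genes, by 0.48 over the mean of the controls on the log2 scale, and Con A + PBS mouse 4 was the lowest. Without control mouse 1, 10 complex I genes were called lower, without Con A + PBS mouse 4 11, and without control mouse 4 22 genes of complexes II to V were. Slc25a23 was at -2.79 without Con A + PBS mouse 4.

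Genes of both ends of the liver lobule fell. Of 30 pericentral genes, which hepatocytes around the central vein express under Wnt signals, 21 were lower and 2 higher (median log2 fold change -1.52). Glul, glutamine synthetase, went from 7966, 10972, 12230 and 12230 to 1926, 2004, 1741 and 1782 (log2 fold change -2.52, SE 0.22, adjusted p = 2.8e-06), and the Wnt targets Notum, Nkd1, Lgr5 and Axin2 were at -3.40 for Notum, -3.48 for Nkd1, -1.95 for Lgr5 and -1.47 for Axin2. Of 29 periportal genes, 15 were lower and 1 higher (median -0.62), with Cyp2f2 from 15086, 20871, 17650 and 20871 to 2264, 3124, 2936 and 1516 and Etnppl at -3.21. Sox9, a factor of bile duct cells and of injured hepatocytes, was the 1 increase, from 131, 112, 152 and 180 to 500, 508, 290 and 881 (log2 fold change 1.83, SE 0.27, adjusted p = 0.00013). Most circadian genes were not called, 17 of 22. Per2 rose from 256, 94, 186 and 184 to 662, 608, 871 and 690 (log2 fold change 2.04, SE 0.30, adjusted p = 0.00011), Arntl was lower at -0.69 and Dbp was not called with an interval of -0.65 to 1.07. The hour of collection is not in the labels. Arntl fell short of 1.5-fold without control mouse 2, at -0.57, or without Con A + PBS mouse 4, at -0.49.

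Most markers of Kupffer, sinusoidal endothelial and stellate cells were lower, and most of the measured monocyte and neutrophil markers were higher. In whole tissue, fewer cells of a type and less RNA per cell cannot be told apart, and this holds for each marker below and for the hepatocyte genes above. Of 13 Kupffer cell markers, the liver's resident macrophages, 10 were lower and 1 higher (median log2 fold change -2.86). The table's minimum was reached in controls alone by 5 of them, all called lower, and of the 8 that reached it on both sides 5 were lower and 1 higher. Clec4f went from 1598, 1646, 1282 and 1578 to 44, 76, 43 and 43 (log2 fold change -4.90, SE 0.37, adjusted p = 9.1e-07), Vsig4 from 582, 571, 446 and 612 to 8, 32, 28 and 35 (log2 fold change -4.54, SE 0.44, adjusted p = 5.3e-06) and Timd4 from 80, 150, 62 and 104 to 8, 14, 8 and 12 (log2 fold change -3.08, SE 0.40, adjusted p = 5.1e-05). Marco scored 112, 426, 122 and 226 and 50, 116, 64 and 60 with overlap. The 1 increase was Id3, which is not specific to these cells. The list also counts Cdh5, named below as a general endothelial gene, which was not called. The summed score of the list was 8759 to 12118 in the controls and 4234 to 5194 after Con A, and none of the defining markers Clec4f, Vsig4 and Timd4 was at 0 in any mouse. Marco had an adjusted p of 0.0551 without control mouse 2 and of 0.0507 without Con A + PBS mouse 1.

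Of 21 monocyte and macrophage markers listed 16 were in the table, 11 of them called higher and 3 lower, and of 20 neutrophil markers 13, of which 12 were called higher. These shares do not describe the lists as wholes, since 5 of the monocyte and 11 of the neutrophil markers were under the table's minimum in the controls and entered through mice given Con A. Of the 10 monocyte markers that reached it on both sides, 6 were higher and 2 lower, and the only 2 such neutrophil markers were both higher. Ly6c2, of monocytes fresh from blood, went from 16, 16, 6 and 1 to 221, 204, 226 and 144 (log2 fold change 4.62, SE 0.55, adjusted p = 2.7e-05). Cd68, a lysosomal protein of macrophages, went from 144, 158, 88 and 108 to 950, 1018, 746 and 932 (log2 fold change 2.89, SE 0.37, adjusted p = 5e-05), and Gpnmb, of macrophages that take up lipid or debris, from 1, 0, 1 and 0 to 160, 220, 174 and 156 (log2 fold change 6.97, SE 0.37, adjusted p = 8.7e-08). The 3 lower members of the monocyte list were Lyz2, Aif1 and Csf1r, the receptor that macrophages need to survive, all of which Kupffer cells share with monocytes, at -1.39 for Lyz2, -1.62 for Aif1 and -2.57 for Csf1r. The calcium-binding alarmins of neutrophils S100a8 and S100a9 went from 16, 22, 24 and 1 to 588, 614, 411 and 160 and from 21, 28, 20 and 12 to 717, 860, 555 and 390 (5.06 for S100a8 and 4.89 for S100a9). Granule genes were higher too, Ngp from 0, 0, 0 and 3 to 164, 170, 128 and 274, and Ltf, Mmp8 and Mmp9 at 6.24 for Ltf, 4.94 for Mmp8 and 4.91 for Mmp9. Fpr1 was not called at -0.42. The summed score of the measured members was 2042 to 3140 in the controls and 3728 to 4285 after Con A for monocytes, and 327 to 580 and 2086 to 2758 for neutrophils. Ly6c2 was at 3.96 without control mouse 4 and S100a8 at 4.20 without control mouse 4.

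Lymphocyte markers were few. Of 22 T cell markers listed 6 were in the table, 4 called higher and 1 lower, and all 4 entered through mice given Con A, so that the count says little of T cells. Of the 2 that reached the minimum on both sides, 1 was lower and neither higher. Cd8a went from 0, 12, 5 and 12 to 78, 98, 86 and 38 and Cd28 from 6, 8, 0 and 6 to 142, 122, 114 and 112 (log2 fold changes 3.67 and 4.75), and Zap70 was at -0.95 with overlap. The defining T cell genes of the CD3 complex were on the list, and values for them are not reported here. Of 15 natural killer and cytotoxic markers listed 8 were in the table and 6 called higher, 5 of these having entered in the same way, and of the 2 that reached the minimum on both sides 1 was higher. Among them were Gzmb, granzyme B, from 8, 13, 14 and 12 to 627, 625, 504 and 316 (log2 fold change 5.32, SE 0.26, adjusted p = 4.9e-08) and Gzma at 3.96, while Klrk1 was not called at 0.20. Only 3 B cell and 4 dendritic cell markers were measured. Of the B cell markers 1 was lower, Bank1 at -0.76. Of the dendritic cell markers 2 were lower, Clec9a at -0.70 and Xcr1, given above, and 1 was higher, Bst2 at 1.52, which is also induced by interferon in many cells. All 5 erythroid genes fell, Alas2 from 373, 302, 266 and 276 to 66, 78, 77 and 64 (log2 fold change -2.07, SE 0.15, adjusted p = 7.5e-07) and Hbb-bs at -0.92. Cd28 was at 4.01 without control mouse 3 and Cd8a at 2.84 without control mouse 1.

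Sinusoidal endothelial and stellate cell markers fell as well. Of 21 markers of the sinusoidal endothelium, the porous vessel lining of the liver, 16 were lower and 1 higher, and of the 16 that reached the table's minimum on both sides 11 were lower and 1 higher. The summed score of the list overlapped, at 13797 to 19403 in the controls and 9843 to 26171 after Con A, and the median log2 fold change was -1.71 over all members but 0.57 over those with a mean score of at least 1000. Clec4g went from 812, 608, 503 and 493 to 9, 16, 3 and 8 (log2 fold change -6.07, SE 0.45, adjusted p = 8.6e-07), Kdr, the VEGF receptor 2, from 540, 520, 362 and 598 to 88, 152, 88 and 46 (log2 fold change -2.52, SE 0.32, adjusted p = 4.8e-05), and Stab2, the scavenger of hyaluronan, was at -0.79. Lyve1 rose from 86, 74, 72 and 134 to 223, 252, 207 and 196 (log2 fold change 1.29, SE 0.19, adjusted p = 0.00011). The general endothelial genes Cdh5 and Pecam1 were not called, with intervals of -0.68 to 0.14 and -0.09 to 0.53. Adhesion genes rose in 13 of 19, 8 of these having entered the table through mice given Con A, and in 5 of the 11 that reached it on both sides, with 1 lower. Among the 13 were Icam1 from 229, 350, 298 and 274 to 1318, 1028, 1012 and 1331 (log2 fold change 2.03, SE 0.16, adjusted p = 1.4e-06), Vcam1 at 0.83 and Angpt2, of activated endothelium, at 2.99.

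Of 17 stellate cell markers, the vitamin A storing cells that make scar, 11 were lower and none higher (median log2 fold change -2.10). Of the 11 that reached the table's minimum on both sides 6 were lower. Colec11 went from 562, 427, 382 and 490 to 14, 12, 11 and 14 (log2 fold change -5.08, SE 0.34, adjusted p = 4.3e-07), Reln, reelin, from 600, 586, 444 and 942 to 94, 85, 96 and 138 (log2 fold change -2.60, SE 0.21, adjusted p = 1.5e-06), and Lrat, which stores retinol, from 452, 288, 268 and 343 to 77, 82, 70 and 52 (log2 fold change -2.24, SE 0.21, adjusted p = 4.3e-06). Dcn, Pdgfra and Des were not called at 0.48 for Dcn, -0.19 for Pdgfra and -0.54 for Des. The fibrillar collagens below were not called either, with intervals of -0.63 to 0.96 for Col1a1, -1.62 to 0.10 for Col1a2 and -0.65 to 1.07 for Col3a1. Of 42 matrix genes, 15 rose and 8 fell, 8 and 7 among the 31 that reached the minimum on both sides, the increases including the metalloproteinases Mmp8 and Mmp9 given above, Timp1, the inhibitor of metalloproteinases, from 2, 0, 4 and 6 to 270, 274, 283 and 274 (log2 fold change 6.43, SE 0.45, adjusted p = 6e-07), the basement membrane chain Col4a1 at 2.67, Lox at 3.30 and Fn1, fibronectin, at 1.35. Cytoskeletal genes rose in 28 of 39 and fell in none, with Tmsb10 from 306, 188, 197 and 148 to 2642, 2687, 2354 and 1088, Anxa2 at 3.33 and the hepatocyte keratins Krt18 and Krt8 at 1.58 and 1.04. Actb, often used as a reference gene, was not called at 0.47. Of 10 hepatocyte markers 5 were lower and none higher, and Alb and Cps1 had the same score in all 8 mice.

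Neighbouring genes called in the same direction formed runs along the chromosomes, and the longest are given here. The shared direction is the rule that defines a run, and other clusters were split, such as Apoc2 against Apoc1 and Apoc4. The longest run was 14 genes on chromosome 4 (chr4:60418046-62087289, mm10) that were all lower, 13 of them major urinary proteins, which carry pheromones, with log2 fold changes between -5.05 and -1.02. Mup20 went from 2244, 1939, 1909 and 3166 to 706, 1114, 554 and 406 (log2 fold change -1.80, SE 0.51, adjusted p = 0.009). The next were the Cyp2c run, the Ugt1a run and a run of 8 on chromosome 10 (chr10:127739538-128000678) with retinol dehydrogenases and Hsd17b6 at -3.54, and, upward, the Slfn run, the run of Irgm1 to Ifi47 with Tgtp1 on chromosome 11 (chr11:48861968-49096974), the Serpina3 run and 7 genes of the S100a and Sprr families on chromosome 3 (chr3:90612894-93564643). Members of these families share sequence, so that reads of one may have been counted for another.

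Motif letters were counted in the 250 bases before the start of 7172 genes whose RefSeq promoter held the start of the table's transcript. The core of the interferon-stimulated response element (GAAANNGAA, both strands) was in 9.25% of promoters of genes called higher, in 5.64% of genes called lower and in 6.44% of all. Among the antiviral list it was in 19 of 42 promoters, among them those of Isg15, Ifit1 and Ifit3 with 3 matches each. The STAT letters (TTCNNNGAA) were in 6.74% of promoters of genes called higher, 4.60% of genes called lower and 6.01% of all. The kappa B letters (GGGANTTTC) were rare, in 1.43% of promoters of genes called higher and 0.82% of all, and 3 of 7 CXC chemokine promoters held them, those of Cxcl1, Cxcl2 and Cxcl9. The AP-1 letters (TGANTCA) were in 7.03%, 4.45% and 4.38% of the higher, the lower and all genes. The C/EBP letters (TTGCNNAA) were in 9.10% of genes called higher, 9.20% of genes called lower and 8.00% of all, and in 10 of 19 promoters of acute phase genes, those of the 3 measured inducible serum amyloids included. They were also in 8 of 19 promoters of the constitutive plasma proteins and 11 of 42 of the cytochrome P450 genes, 2 lists that mostly fell.

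The letters of hepatocyte factors were more frequent among genes called lower. The HNF4 letters (CAAAGTCC) were in 2.89% of promoters of genes called lower, 1.51% of genes called higher and 1.51% of all. Of 42 cytochrome P450 promoters 11 held them, all of genes called lower, but these were Cyp2a, Cyp2c and Cyp3a genes which are close copies of each other. The HNF1 letters (GTTAATNAT) were in 1.34% of genes called lower, 0.72% of genes called higher and 0.66% of all. For genes with a change above 4-fold the shares of the higher genes were 15.2% for the interferon element, 11.3% for the STAT letters, 3.90% for kappa B, 12.6% for AP-1 and 17.3% for C/EBP, and those of the lower genes 6.23% for HNF4 and 2.72% for HNF1. Some of these shares rest on few promoters, 9 for kappa B, 16 for HNF4 and 7 for HNF1. The split was not clean: the lower genes above 4-fold also exceeded all genes for AP-1 at 6.23%, for C/EBP at 10.5% and slightly for the interferon element at 6.62%, and the higher genes for HNF4 at 2.17% and for HNF1 at 1.30%, which are 5 and 3 promoters. The interferon and STAT letters can overlap each other, a match is a string of letters and not a site, and these shares are a description.

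**Figure D4:**
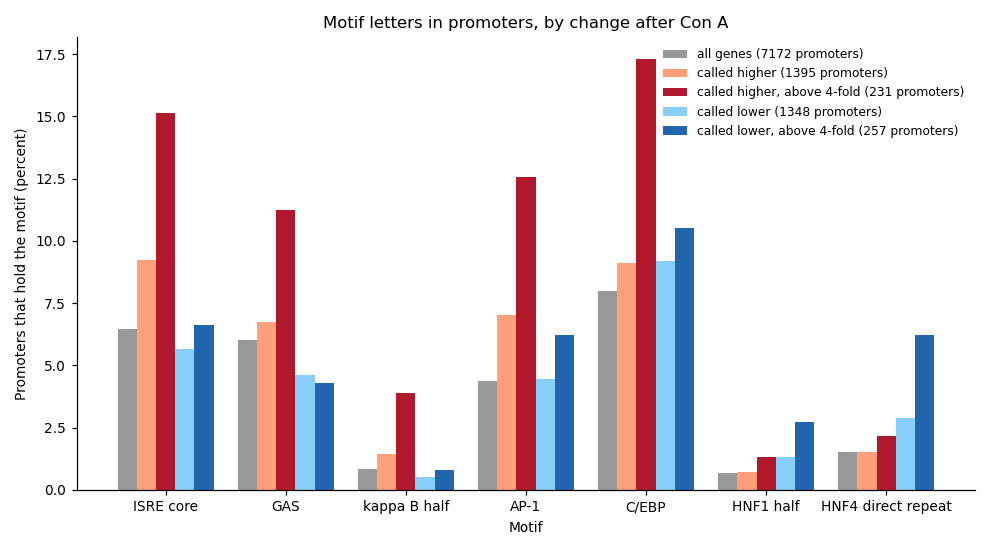
Percent of promoters (vertical axis) that hold each of 7 motifs in the 250 bases before the start, for all 7172 genes (grey), genes called higher (light red), genes called higher by more than 4-fold (dark red), genes called lower (light blue) and genes called lower by more than 4-fold (dark blue). The dark red bars stand above the grey bars for the interferon, STAT, kappa B, AP-1 and C/EBP letters, and the dark blue bars above the grey for HNF1 and HNF4. The dark blue bars also exceed the grey for AP-1, C/EBP and slightly the interferon letters, and the dark red bars for HNF1 and HNF4.

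The size of the change differed between the 4 Con A + PBS mice, which are here compared over genes and lists chosen for their change in these same mice, so that the direction is given by the choice. Taken over the genes called higher, the median difference from the control mean was 1.05, 0.89, 0.95 and 1.21 on the log2 scale in mice 1 to 4, and over the genes called lower -1.16, -0.94, -1.06 and -1.43. The mean of 32 of the 73 lists moved by more than 1 on the log2 scale. Mouse 4 had the largest shift in 14 of these lists and mouse 1 in 11, and mouse 2 the smallest in 18. Among these lists the mice were furthest apart in immediate early genes, at 1.94, 1.19, 1.42 and 2.72 above the control mean in mice 1 to 4, and in bile acid synthesis, at -2.01, -1.37, -1.83 and -2.34. In contrast, mouse 4 was the lowest for immunity-related GTPases, at 2.42 against 3.27, 2.77 and 3.03, and among the heat shock chaperones, whose list moved less, at 0.55 against 0.89, 1.12 and 1.01. For the endoplasmic reticulum and integrated stress response list it was the highest, at 1.52 against 1.44, 1.22 and 1.35. The neutrophil list was close in all, at 3.93, 3.87, 3.64 and 3.69.

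Among called genes, the spread between the Con A + PBS mice was widest in genes of low score that some mice had lost: Gngt1 scored 0, 0, 62 and 52, Smc1b 26, 0, 25 and 0 and Lsamp 0, 0, 0 and 31 after Con A, whereas the controls scored 131, 94, 87 and 103 for Gngt1, 69, 92, 82 and 60 for Smc1b and 52, 68, 67 and 66 for Lsamp. Cyp8b1 and Nr1h5 were among the 10 widest as well, and mouse 2 held the highest score of Cyp8b1 after Con A. The calls of the first 3 of these genes depended on single mice. That of Gngt1 was lost without Con A + PBS mouse 1 (adjusted p = 0.0536), that of Smc1b without control mouse 2 or 3 or Con A + PBS mouse 2 or 4 (adjusted p from 0.0516 to 0.0685), and that of Lsamp without any 1 control (adjusted p from 0.0531 to 0.0590). The log2 fold changes over all mice were -3.77 for Gngt1, -4.75 for Lsamp and -3.88 for Smc1b. That of Gngt1 was -2.79, -4.78 and -4.70 without Con A + PBS mouse 2, 3 and 4, that of Lsamp -6.0 without mouse 4, and that of Smc1b -4.68 and -4.66 without mouse 1 and 3.

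**Figure D5:**
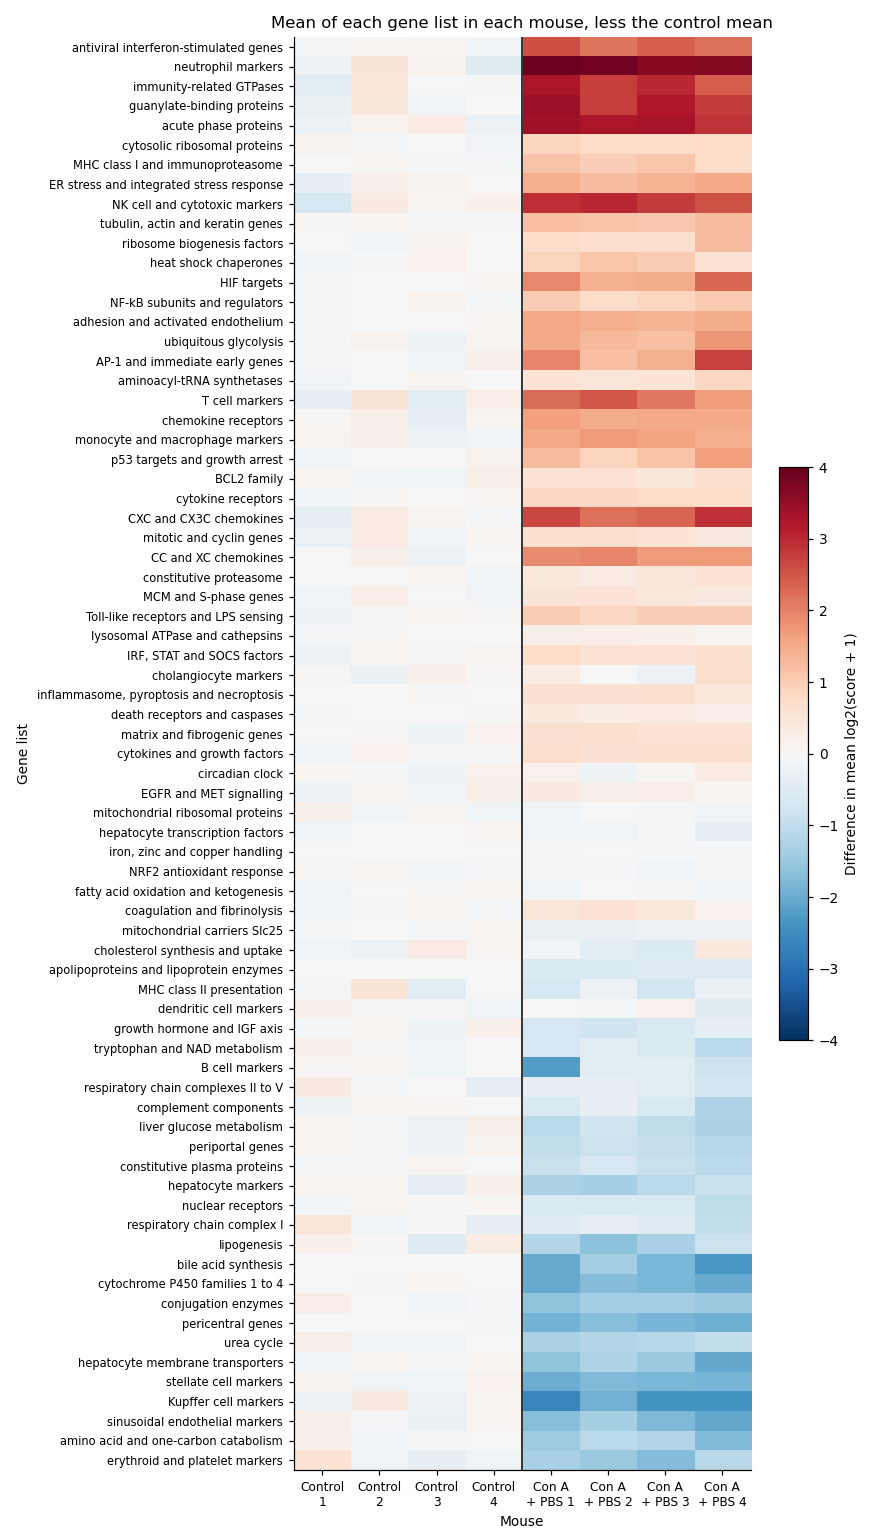
Mean log2(score + 1) of each gene list in each mouse less the mean of the 4 controls, as colour (red higher, blue lower, scale in log2 units), for the 73 lists (vertical axis) in 4 control and 4 Con A + PBS mice (horizontal axis). The control columns are pale throughout. The deepest red is that of neutrophil markers, of which 11 of 13 entered the table through mice given Con A, followed by acute phase proteins and interferon GTPases, and the deepest blue for Kupffer cell markers.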

How the data were processed

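Poly(A) RNA of whole liver from 12 mice was sequenced with paired reads. According to the submitters' processing notes, Bowtie2 2.2.1, RSEM 1.2.18 and mm10 were used, in roles not given in the sources used here. The deposited values are whole-number scores that the authors had normalized between mice. The score's scale is not given, and counts and depth are unknown. Each gene reaches 64 or more in at least 2 mice.

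Groups were taken from the labels. Log2(score + 1) values of the 12 mice were fitted together with limma 3.58.1 in R 4.3.3 (empirical Bayes with a variance trend), and Con A + PBS was compared with control over all 11289 genes. Calls needed p, adjusted after Benjamini and Hochberg, to be under 0.05 and the change to exceed 1.5-fold. Groups overlap unless all 4 mice of one lie above all 4 of the other. The labels do not name litters or cages, so p-values measure the spread between these mice. The limma step was tested on simulated data. RefSeq promoters were matched by symbol, strand and start to 7172 genes.

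Named genes were the 15 largest changes each way among called genes without overlap, the 5 largest of each list and the 2 largest against its majority, defining and key members of the lists, genes that entered or left the 100 highest, the 10 called genes with the widest spread among Con A + PBS mice, genes of the 3 longest runs, and genes under 20 in one group and over 500 in the other. Some genes that this rule names are not reported here. The lists and members were chosen with earlier results of these data known. Alternatives were the pseudocount, filters on low scores, centring, quantile normalization, the variance trend, the 8 mice alone, the thresholds, a replicate block and leaving out each mouse. The 4 mice given cells were compared with no group.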

Additional observations from a re-analysis of the deposited data

Results flagged for a closer look

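For the genes whose scores are given mouse by mouse, each group of 4 was searched for a mouse far from the other 3, on the log2(score + 1) scale, by Dixon's ratio at the 95% level. Such a mouse was found in 29 of 326 groups (8.9%). For values without ties chance gives about 1 in 20, but many scores here are tied. Where the other 3 mice have equal scores the ratio is 1, however near to them the mouse apart lies. This held for Apoa2, Bhmt, Car3, Cfb, Ch25h, Il1r2, Lcn2, Ngp, Nos2, Saa2, Saa3 and Ttr, and for Lsamp after Con A. The share of 8.9% can therefore not be set against that rate. The genes share mice, so these groups are not independent. Con A + PBS mouse 4 was the mouse apart in 10 of them and control mouse 3 in 8. The part of any technical difference between the mice in these values was not tested.

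Con A + PBS mouse 4 was the low mouse of its group in 7 of these genes and the high mouse in 3. It scored 20871 in Saa3 and 72682 in Saa2, the serum amyloids, against 72724 and 341028 in the other 3 mice. It was also low in Cfb, factor B of complement, at 23572, in Il18bp, which binds interleukin 18, at 924, in Psmb8, a subunit of the immunoproteasome, at 1587, in Tmsb10, which binds actin, at 1088, and in Nr0b2, the receptor SHP, at 22. The same mouse was high in Lcn2, lipocalin 2, at 341028, in Sult1e1, the estrogen sulfotransferase, at 1729, and in Lsamp, which it alone held at 31. Saa2, Saa3, Cfb and Lcn2 stand among the sets of equal high scores, where the step to the next set is large.

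Con A + PBS mouse 2 was the high mouse in Aox3, an aldehyde oxidase, at 298, in Clec4f, the Kupffer cell lectin, at 76, and in Ttr, transthyretin, at 44292. Con A + PBS mouse 1 was low in Vsig4, a complement receptor of Kupffer cells, at 8.

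Among the controls, mouse 3 was low in Car3 at 16342, in Inmt at 5730, in Clec4f at 1282, in Gsta1 at 1 and in Cd28 at 0, and it alone was above 0 in Ch25h at 4, Il1r2 at 4 and Nos2 at 6. Control mouse 1 was high at 341028 in both Apoa2 and Ttr, and low in Lsamp at 52. Control mouse 2 was low in Bhmt at 72892 and high in Tap1 at 736. Control mouse 4 was low in S100a8 at 1 and alone above 0 in Ngp at 3. The calls of these genes were kept without the mouse named, except that Lsamp was not called without control mouse 1 (adjusted p = 0.0590 by limma).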

How the results depend on the processing

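The counts of genes called higher and lower kept within 1.5 times of 2206 and 2173 under every alternative but 2. Asking for a change above 2-fold left 1107 higher and 1284 lower, and testing only genes with a mean score of at least 1000 left 650 and 607, since fewer genes were tested. Leaving out each mouse in turn gave 2061 to 2308 genes called higher and 2027 to 2267 called lower. In a fit of the 8 mice alone, 3177 rather than 3373 genes had an interval within 1.5-fold. Centring each mouse on its median gave the same counts, and quantile normalization gave 2191 and 2172. The size of the largest changes depended on the pseudocount: with 10 in place of 1 the fold of 196 called genes was smaller by more than 1.5 times and that of none larger, with A2m at 7.93, Sprr1a at 5.26, 3930402G23Rik at 5.25 and Cux2 at -5.47, and 2144 and 2126 genes were called. Quantile normalization moved the fold of 57 called genes by that much, 55 of them to a smaller one.

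The labels number the mice of both groups from 1 to 4, and no source used here says that equal numbers share a litter, cage or day. The deviations of same-numbered mice from their group means correlated at -0.113, -0.061, 0.024 and 0.168, so the numbers were not taken as pairs. With the replicate number as a block, 2226 genes were called higher and 2203 lower, 2199 and 2165 of them also called without it, and 4 rather than 2 circadian genes were called lower.

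Of 515 named genes, 438 were called, and none of these changed sign under any of the 18 alternatives. Apart from the 2-fold threshold, 25 lost the call under at least 1 alternative, and these with their single mice are given beside the results. The fit of the 8 mice alone ended the calls of C8b, Crp, Eda2r, Fabp1, Fgf12, Mki67, Pkhd1l1, Pzp, Rdh7 and 4930513O06Rik, and called Col1a2 and Gbp8. Of 77 named genes not called, 15 were called under some alternative: without control mouse 1 Dcn, Stat5a and Xist, without control mouse 2 Epsti1, Psph and C4bp, without control mouse 3 C4bp, Hamp, Itih3, Psph and Serping1, without control mouse 4 Dbp and Egfr, without Con A + PBS mouse 1 Xist, without mouse 2 Psph, Slco1b2 and Xist, and without mouse 4 C4bp, Fas, Gbp8, Hamp and Itih3. Their log2 fold changes were then 0.60 to 1.16, -0.60 for Stat5a and -2.33 for Slco1b2. Gbp8 was also called with the replicate block, and Slco1b2, at -1.69, when the p of limma was not adjusted. The fold change of 44 called genes moved by more than 1.5 times without 1 mouse and kept its call, in 25 of these without Con A + PBS mouse 4, and the values stand beside the results. Of 47 list medians beyond 1.5-fold, 1 changed sign: with genes of a mean score of at least 1000 alone, that of the sinusoidal endothelial markers was 0.57, against -1.71 over all. List counts that moved by more than 1.5 times without 1 mouse, other than those given beside the results, were as follows. Lower genes numbered 2 rather than 4 among IRF, STAT and SOCS factors without Con A + PBS mouse 4 and among mitochondrial ribosomal proteins without control mouse 1, 0 rather than 2 in MHC class II presentation without control mouse 2 or 4 or Con A + PBS mouse 1 or 3, 1 rather than 2 among circadian genes without control mouse 2 or Con A + PBS mouse 4, 0 rather than 1 among adhesion genes without control mouse 1, 2 or 4 or Con A + PBS mouse 1, 2 or 3, 2 rather than 1 among B cell markers without Con A + PBS mouse 3, and 1 rather than 0 among cholangiocyte markers without control mouse 4 or Con A + PBS mouse 4. Higher genes numbered 1 rather than 2 in bile acid synthesis without Con A + PBS mouse 1, among mitochondrial carriers without control mouse 1 and among pericentral genes without control mouse 1 or Con A + PBS mouse 4, 2 rather than 1 among periportal genes and sinusoidal endothelial markers without Con A + PBS mouse 2 and among cholangiocyte markers without mouse 3, and 1 rather than 0 among stellate cell markers without control mouse 1. In the fit of the 8 mice alone 1 mitochondrial carrier was higher and 1 cholangiocyte marker lower, and with the replicate block 2 periportal genes were higher.

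Read depth is not known from scores, and small scores carry the least information. Fewer cells of a type and less RNA per cell cannot be told apart in whole liver.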

Other observations

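The families of this paragraph and the next were picked after their values were seen. Carboxylesterases, which split esters of drugs and lipids, had 9 of 12 measured genes lower and none higher. Ces1f went from 6158, 6040, 5567 and 5567 in the control mice to 82, 292, 134 and 270 in the Con A + PBS mice (log2 fold change -5.08, SE 0.55, adjusted p = 1.4e-05) and lay in a run of 6 neighbouring Ces1 genes on chromosome 8 (chr8:93056727-93337308, mm10) that were all lower. The carbonic anhydrases, which turn carbon dioxide into bicarbonate, were called in all 9 measured genes, 7 lower and 2 higher. The 2 higher ones entered the table through mice given Con A, and the 6 that reached its minimum on both sides were all lower. Car5a, the mitochondrial form that supplies the urea cycle, went from 1084, 944, 1059 and 978 to 27, 120, 44 and 9, and Car14 was at -5.04. Car4, anchored to the outside of the cell membrane, was at 6.34 and Car13 at 2.10 on the log2 scale. All 4 measured 3-beta-hydroxysteroid dehydrogenases fell, 1 of them having reached the minimum in controls alone, with Hsd3b3 at -4.84, and Gamt, the last enzyme of creatine synthesis, went from 6736, 3192, 4824 and 4030 to 108, 299, 106 and 405 (log2 fold change -4.54, SE 0.57, adjusted p = 4e-05). The folate enzymes did not move together: Mthfd2 and Mthfd1l of mitochondria both rose by 3.17 and Mthfd1 of the cytosol was at -1.68. Mthfd2 and Mthfd1l entered the table through mice given Con A, and Mthfd1 was the 1 member that reached its minimum on both sides. Car5a was at -5.45 without Con A + PBS mouse 2 and -4.25 without Con A + PBS mouse 4.

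Among genes of immune cells and tissue remodelling, Cd274, the inhibitory ligand PD-L1, scored 52, 92, 40 and 70 in the controls and 940, 594, 715 and 1096 after Con A (log2 fold change 3.73, SE 0.31, adjusted p = 1.9e-06). Irg1, whose enzyme makes itaconate in macrophages, went from 7, 16, 2 and 3 to 164, 110, 164 and 150 (log2 fold change 4.52, SE 0.51, adjusted p = 1.8e-05). The groups were apart for both genes. Slpi, an inhibitor of neutrophil elastase, went from 36, 46, 18 and 34 to 1776, 1426, 1164 and 1635 (log2 fold change 5.50, SE 0.43, adjusted p = 1.3e-06). Of 32 Trim genes, ubiquitin ligases of which several act against viruses, 15 were higher and 2 lower, and Trim30a went from 166, 145, 119 and 154 to 2040, 1302, 1739 and 1580 within a run of 5 neighbouring higher genes on chromosome 7 (chr7:104299894-104507849, mm10). Of 8 Ms4a genes 7 were higher and none lower, but 5 entered the table through mice given Con A, and of the 3 that reached its minimum on both sides 2 were higher. Of 9 matrix metalloproteinases 5 were higher and 2 lower, with 3 that entered through mice given Con A, 1 through controls alone, and 2 higher and 2 lower among the 5 on both sides. Of this family 4 members were at 4.68 for Mmp7, 1.23 for Mmp13, -1.92 for Mmp15 and -1.08 for Mmp19. Mmp15 was at -1.29 without Con A + PBS mouse 4.

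Of the 100 genes with the largest mean score, 62 were the same in both groups. Among those that had entered the set after Con A and are not described above, Calr, Crp, Cltc, Gm26809, Hnrnpa2b1, Hspa8, Ifitm3, Ldha, Lrg1, Pdia3, Tgm2 and Ubb were called higher, and C4bp, Cml2, P4hb and Serping1 were not called. Among those that had left it, Ahcy, Aldh1l1, Aldh2, Apoc3, Apoh, Azgp1, Cyp2c29, Cyp2c69, Cyp2c70, Cyp3a11, Cyp3a41a, Eef2, Fabp1, Mug2, Pigr, Rdh7, Slc38a3 and Sord were called lower, and H2-K1, Rnase4, Serpina1e, Slc27a2 and Slco1b2 were not called. The remaining genes with the widest spread between the Con A + PBS mice were 4930513O06Rik, Chrna4, Fam47e, Fgf12 and Pkhd1l1, all called lower. Among all these, 6 calls were lost without single mice: Fgf12 and Pkhd1l1 without any 1 control (adjusted p from 0.0600 to 0.0840), 4930513O06Rik without any 1 control or Con A + PBS mouse 1 or 3 (0.0514 to 0.0904), Crp without control mouse 1 or 4 or Con A + PBS mouse 1, 2 or 3 (0.0583 to 0.0868), Fabp1 without control mouse 1, 2 or 3 or Con A + PBS mouse 1 or 4 (0.0580 to 0.109), and Rdh7 without any 1 control or Con A + PBS mouse 1 (0.0571 to 0.0700), or, at -0.58, without mouse 4. On the log2 scale 4930513O06Rik was at -4.15 without Con A + PBS mouse 2 and -4.08 without Con A + PBS mouse 4, Chrna4 at -6.39 without control mouse 3 and -6.66 without Con A + PBS mouse 4, Fam47e at -1.78 without Con A + PBS mouse 4, Fgf12 at -1.17 without Con A + PBS mouse 1 and Pkhd1l1 at -3.38 without Con A + PBS mouse 1 and -1.35 without Con A + PBS mouse 4.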
